A study of Mus musculus with 18 samples.

Results

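CD8+ T cells that carried 41BB when they were sorted, and that then spent 72 h in culture with activating beads, were compared with CD8+ T cells without 41BB taken directly after the sort. The comparison asks how near to, and how far from, the transcript levels of resting conventional cells the 41BB+ cells stood at the last time sampled. All cells came from spleen and lymph nodes of wild-type C57BL/6J mice, whose age the sources used here do not give. 41BB, also named CD137 and encoded by Tnfrsf9, is a receptor of the TNF receptor superfamily that costimulates T cells, and the series names the 41BB+ cells Tpam and the 41BB- cells conventional. The 72 h 41BB+ cells had been cultured in IMDM medium with serum and with Dynabeads that carry antibodies to CD3 and CD28, which stimulate T cells through the T cell receptor and its main costimulatory receptor. The 0 h 41BB- cells, called resting cells here, had had neither culture nor beads. "41BB+" names the gate at the sort, before culture. The population and the 72 h of culture with beads both differ between the groups, so their effects cannot be told apart in this comparison. Each group had 3 libraries (n = 3), described as biological triplicates. The sources used here do not say whether a triplicate was 1 mouse or a pool, so p-values measure the spread between these samples.

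The genes described are all 12686 autosomal genes with enough counts to be tested, of 55487 in the count table. Of the 50957 autosomal genes of the table, 27842 had at least 1 count in the 6 libraries compared. Levels are CPM (a gene's counts over all counts of the library, times 1000000) on library totals scaled by TMM (the trimmed mean of M values, a scaling between libraries), given per library in the order of libraries 1 to 3 or as mean ± SD, with the resting group first wherever the groups stand together. Differences are log2 fold changes (log2FC ± SE), positive where the 72 h 41BB+ cells were higher. A gene was called where its adjusted p was below 0.05 by the edgeR quasi-likelihood test with Benjamini-Hochberg adjustment over all genes tested, and every adjusted p of a gene below is from that test. A gene was termed near the resting level where both groups had counts and the whole 95% interval of its difference lay within 1.5-fold in either direction (within 0.58 on the log2 scale). Coordinates are on GRCm38. In bulk RNA, fewer cells of a type and less RNA per cell cannot be told apart.

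A resting CD8 T cell is small, does not divide, and keeps transcription factors such as TCF1, LEF1, KLF2 and FOXO1 that hold it in circulation through lymphoid organs. Stimulation through the T cell receptor and CD28 first induces immediate early genes of the AP-1 and EGR families, then MYC, which drives ribosome production and the enzymes of growth, and then several rounds of division. Genes of DNA synthesis are controlled by E2F factors and those of mitosis by complexes bound at CHR elements and CCAAT boxes.

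The 72 h 41BB+ libraries held 3436920 to 3712783 counts and the resting libraries 3085241 to 3315474. The first had 17672 to 18624 detected genes and the second 20224 to 22415. Mitochondrial transcripts took 10.9% ± 0.473 of the counts at 72 h and 9.73% ± 1.45 at rest (exact two-sided permutation p = 0.3), and ribosomal protein genes 3.16% ± 0.326 and 4.87% ± 0.472. The nuclear noncoding RNA Malat1 took 0.223% ± 0.0311 and 0.736% ± 0.107, and Gm23935, annotated as a microRNA gene, 9.63% ± 0.446 and 7.46% ± 1.26. Each of these last 3 shares did not overlap between the groups (exact permutation p = 0.1, the lowest value possible with 3 libraries a group). Of the markers of the sorted lineage, Cd8b1 and Cd3e were abundant in both groups. Cd4 had 2 counts in each group. The B cell gene Ms4a1, the NK cell gene Ncr1 and the myeloid gene Tyrobp had between 0 and 3 counts in a group. Other listed markers had more, such as Zbtb16 with 23 counts at rest and 17 at 72 h, and Flt3 with 19 and 2. The summed level of 9 markers of CD4 and regulatory T cells was 156, 127 and 111 CPM at rest and 1233, 1269 and 1103 CPM at 72 h, with 5 of the 8 tested called higher (Zbtb7b, Tnfrsf4, Il2ra, Ikzf2 and Ctla4) and 1 lower (0 without resting library 3). Tnfrsf4, Il2ra and Ctla4 are also known as genes of activated CD8 cells. The regulatory T cell gene Foxp3, X-linked and so outside this sum, was higher too, with its values given among the transcription factors below. The sum for B and plasma cell markers was 275, 311 and 298 against 706, 649 and 626 CPM, carried by Ighm (226 ± 11.9 against 584 ± 32.0 CPM) and Ighd (10.9 ± 2.1 against 28.4 ± 1.6 CPM), while Cd79a, which B cells need to display it, had 1 and 4 counts. NK and gamma-delta markers summed to 67.7, 68.1 and 71.1 CPM at rest and 19.2, 34.1 and 22.001 CPM at 72 h, and myeloid markers to 48.8, 42.1 and 37.2 against 43.4, 28.3 and 28.1 CPM. Erythroid, platelet and stromal markers summed to 263, 208 and 221 CPM at rest and 223, 234 and 303 CPM at 72 h. The part of other cells in the results was not tested.

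The 72 h 41BB+ cells differed from resting cells at 4706 of 12686 genes (37.1%). Of these, 2588 genes were higher (20.4% of all tested) and 2118 lower (16.7%), so that 55.0% of the calls were higher. Library totals alone moved that split to 45.8% higher (2198 higher and 2597 lower, median of all genes -0.12) and upper-quartile factors to 45.0% (2174 and 2654, median -0.13), against a median log2FC over all genes of -0.02 with TMM. RLE factors gave 53.4% and DESeq2 52.8%. By at least 2-fold, 2559 genes were called (20.2%), 1459 higher and 1100 lower. Calls of at least 8-fold numbered 441 higher and 167 lower. In the other direction, 2247 genes were near the resting level (17.7%), 70 of which were also called, and 5803 genes (45.7%) were neither called nor near, with intervals that reached beyond 1.5-fold on at least one side. Libraries of the groups did not overlap at 2997 genes in the higher and 2892 in the lower direction, together 46.4% of the genes tested.

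**Figure D1:**
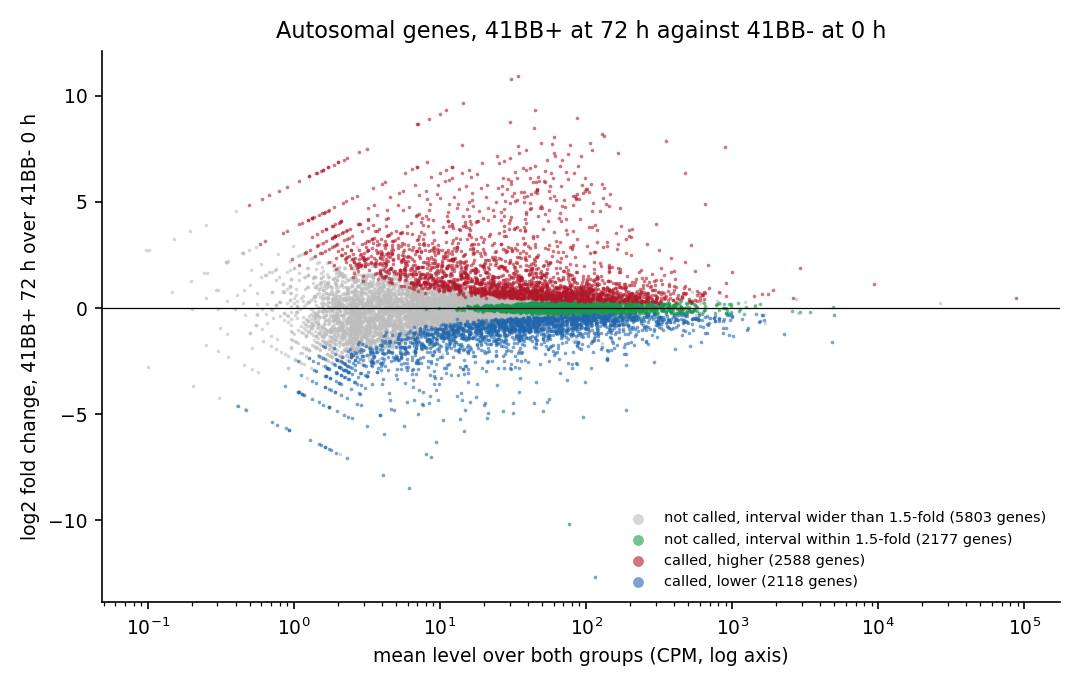
Each point is 1 of the 12686 autosomal genes, with the mean level over both groups in CPM on a log axis and the log2 fold change of 72 h 41BB+ against 0 h 41BB- cells on the vertical axis. The 2588 higher and 2118 lower genes spread on both sides of 0, the 2177 genes that were near the resting level without a call form a band about 0, and the 5803 genes with a wide interval lie mostly at low levels.

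How many genes could be placed near the resting level depended on their depth. Below 5 CPM, 0 of 2583 genes were near and 79.6% were neither near nor called, with a median SE of 0.799. From 20 to 100 CPM, 27.3% of 4758 genes were near, 24.4% higher and 18.8% lower. From 100 to 500 CPM, where the median SE was 0.130, 47.8% of 1715 genes were near, 26.5% higher and 22.3% lower. At 500 CPM and above, 41.4% of 169 genes were near, 21.9% higher and 36.1% lower. From 100 to 500 CPM, genes near the resting level were thus about as many as called ones, and a few were both. By gene type, 20.6% of 10744 protein-coding genes were higher and 17.5% lower, against 8.62% and 17.2% of 777 long noncoding RNA genes, whose median log2FC was -0.38. The 988 pseudogenes went the other way, with 29.1% higher and 10.3% lower, and since many copy abundant parent genes their reads may belong to the parents. Protein-coding genes that were higher spanned a median of 21.8 kb of genome and lower ones 34.5 kb, against 27.2 kb for all.

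The 10 most abundant genes near the resting level, with ribosomal protein genes, predicted genes and antigen receptor segments left out, differ in their known roles. Actb (chromosome 5, 142903115 to 142906754), the cytoskeletal beta-actin gene, was at 4571, 4866 and 4961 CPM at rest and 4978, 4538 and 5383 CPM at 72 h (95% interval -0.14 to 0.23). Dock2, which encodes a Rac activator needed for lymphocyte migration, was at 1538, 1495 and 1317 against 1677, 1681 and 1537 CPM (95% interval -0.05 to 0.39), and Ets1, a transcription factor gene of lymphocytes, at 1146, 1136 and 1247 against 1031, 965 and 1162 CPM (95% interval -0.39 to 0.07). In all 3 genes the libraries of the groups overlapped. The nonmuscle myosin gene Myh9 (3100.2 ± 54.1 against 2726 ± 455 CPM), the poly(A) binding protein gene Pabpc1 (1209 ± 60.1 against 1263 ± 189 CPM), the ribosomal scaffold gene Rack1 (1324 ± 131 against 1079 ± 147 CPM), the splicing regulator gene Mbnl1 (1154 ± 44.9 against 1114 ± 88.9 CPM) and Gphn (1385 ± 149 against 1485 ± 67.8 CPM), the gene of the scaffold protein gephyrin, were also near and not called. The remaining 2 of the 10 most abundant were near and also called lower, which the definition allows for small differences. They were Eef1a1, an elongation factor gene (5514 ± 582 against 4432 ± 180.2 CPM, log2FC of -0.32 ± 0.090 with adjusted p = 0.00650), and Ptprc, which encodes the pan-leukocyte phosphatase CD45 (1832 ± 40.99 against 1436 ± 95.5 CPM, log2FC of -0.35 ± 0.089 with adjusted p = 0.00248). Eef1a1 lost its call without resting library 3 (0.141), 72 h 41BB+ library 1 (0.0636) and 72 h 41BB+ library 2 (0.0725), the adjusted p in parentheses. Ptprc lost its call without 72 h 41BB+ library 1 (adjusted p = 0.0617).

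Whole 72 h 41BB+ libraries lay further from resting libraries than replicates lay from each other, and nearer to them than 72 h 41BB- libraries did. The measure is the root mean square difference of log2 CPM over the 12686 genes. Between a 72 h 41BB+ and a resting library its median was 1.316 (lowest 1.277, highest 1.389, 9 pairs). Within the resting group it was 0.6392 and within the 72 h 41BB+ group 0.7333 (3 pairs each). From the same resting libraries, 0 h 41BB+ libraries were at 1.059 (0.9916 to 1.095), 72 h 41BB- libraries at 1.485 (1.455 to 1.505) and 24 h 41BB+ libraries at 1.627. Of the other groups measured, 72 h 41BB- libraries lay closest to the 72 h 41BB+ libraries (0.8168, 0.7219 to 0.8862). All 9 pairs of 72 h 41BB+ and resting libraries were closer than any of the 9 pairs of 72 h 41BB- and resting libraries, and further than any pair of 0 h 41BB+ and resting libraries. These distances share the resting libraries.

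**Figure D2:**
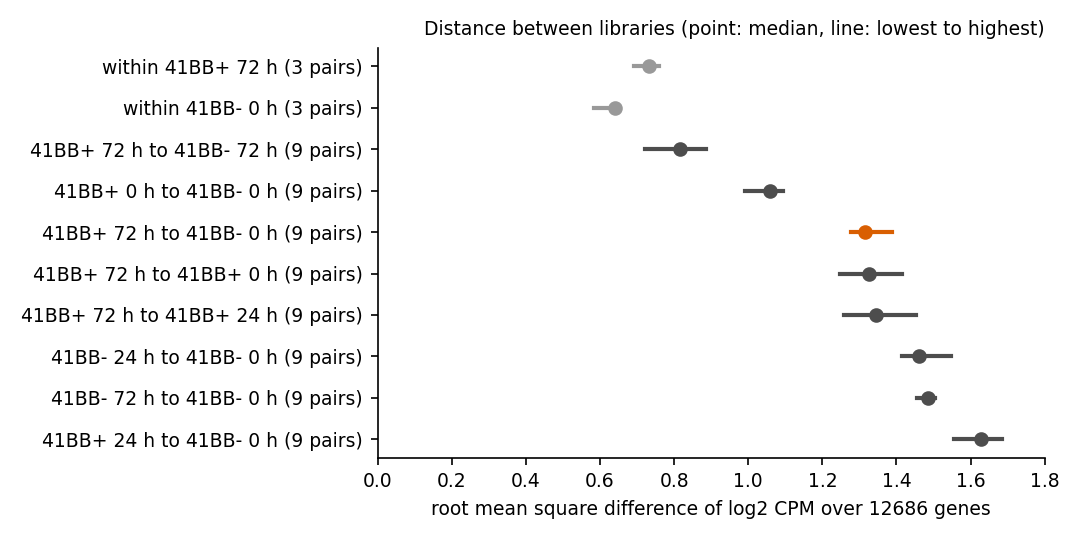
Root mean square difference of log2 CPM over 12686 genes for pairs of libraries, 1 row per pair of groups, with a point at the median and a line from the lowest to the highest pair. Pairs of 72 h 41BB+ and 0 h 41BB- libraries lie between 1.277 and 1.389, between those of the 0 h 41BB+ and of the 72 h 41BB- groups.

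The gene lists differed widely in how many members were called in each direction. They are described by counts and medians over tested members and by sums over all autosomal members. Over all genes 20.4% were higher, 16.7% lower and 17.7% near, with a median of -0.02. The share near depended on level, as given above, and was 47.8% of all genes from 100 to 500 CPM. All 34 tested genes of G2 and mitosis and all 20 of replication-dependent histones were higher, with medians of 6.25 and 4.55, as were 31 of 33 genes of DNA replication (median 2.34). At the other end 20 of 28 genes of the AP-1, EGR and early response list (median -2.13), 19 of 27 of the interferon response (-1.32), 19 of 29 of ribosome biogenesis (-0.80), 24 of 32 ribosomal protein genes (-0.49) and 13 of 19 genes of the naive state (-0.64) were lower. With 1 library left out, 16 to 22 ribosomal protein genes and 9 to 12 genes of the naive state were lower.

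**Figure D3:**
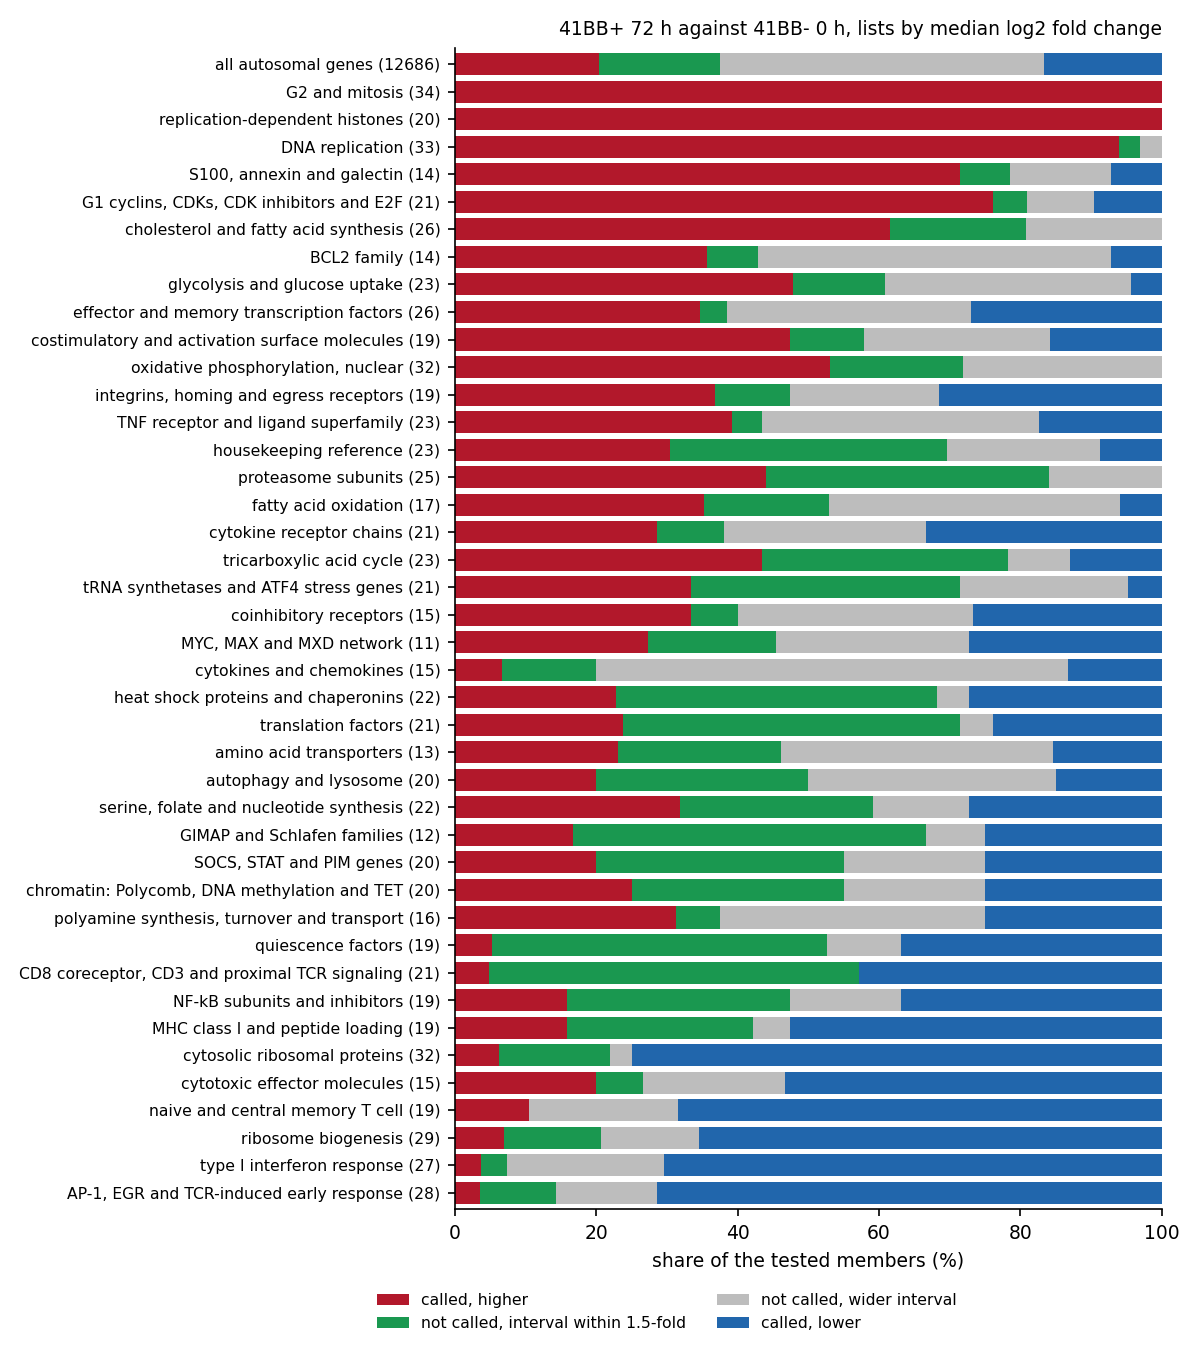
Share of the tested members of each gene list that were called higher, were not called with an interval within 1.5-fold, were not called with a wider interval, or were called lower in 72 h 41BB+ against 0 h 41BB- cells, with the number of members in parentheses and all autosomal genes in the top row. Lists are ordered by median log2 fold change, from G2 and mitosis at 6.25 to the AP-1 list at -2.13.

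Genes of cell division had the highest medians of all lists. The 34 genes of G2 and mitosis summed to 238, 214 and 262 CPM in the resting libraries and to 7056, 5545 and 7121 CPM at 72 h, and the histone genes to 709, 809 and 890.5 against 7078, 7420.2 and 6985 CPM. Near-identical histone copies share reads, so single histone genes are uncertain. Those of smallest adjusted p were Hist1h2bc (3.83 log2FC), Hist1h2ae (5.30), Hist1h2bg (4.19) and Hist1h3d (6.48), all encoding core histones. Kif11 (chromosome 19, 37376403 to 37421859), the motor that separates the spindle poles, was at 2.75, 0.950 and 2.40 CPM at rest and 374, 271 and 340.1 CPM at 72 h. Bub1b (chromosome 2, 118598211 to 118641591), a kinase of the spindle checkpoint, was at 4.58, 4.43 and 3.90 against 204, 152 and 201 CPM. Neither gene overlapped between the groups, and the differences were large (Kif11 log2FC of 7.30 ± 0.26 with adjusted p = 1.50e-17, Bub1b log2FC of 5.42 ± 0.19 with adjusted p = 1.00e-18). Tpx2, which encodes a spindle assembly factor, stood at 0.909 ± 0.80 against 211 ± 31.4 CPM, a log2FC of 7.79 ± 0.31 with adjusted p = 1.14e-16. For Tpx2 the log2FC was 8.37 without resting library 1. The cyclin A2 gene Ccna2 (chromosome 3, 36564865 to 36572150) had 3 counts over the resting libraries and 1757 at 72 h, a ratio of 563 (exact 95% counting interval 192 to 2730.4). Counting intervals and bounds here cover counting error only.

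The 10 largest increases with at least 5 CPM, with predicted genes and antigen receptor segments left out, were mostly of the same kind. Kif18b, a mitotic kinesin gene (73.4, 58.5 and 74.4 CPM at 72 h, at least 224-fold higher), Mcm10, a replication initiation factor gene (66.4, 63.9 and 53.0 CPM, at least 199-fold), and Mxd3, an S phase member of the MAX dimerization family (34.1, 21.01 and 31.0 CPM, at least 93.8-fold), had 0 counts in all 3 resting libraries. These bounds were computed against 3 counts over the resting group. Nuf2, a kinetochore gene, had 1 count at rest and 909 at 72 h, a ratio of 873 (exact 95% counting interval 156 to 34523). Bub1, a checkpoint kinase gene, had 1 and 614 counts, a ratio of 589.7 (exact 95% counting interval 105 to 23331). Kif2c, a kinesin gene of the centromere, had 2 and 887 counts, a ratio of 426 (exact 95% counting interval 118 to 3523). The pseudogene Ccnb1-ps, a copy of a cyclin gene, was at least 54.7-fold higher, and Ccna2 is given above. The other two were Fut4, a fucosyltransferase gene (26.8, 12.2 and 3.47 CPM, at least 46.1-fold), and Ifitm1, a small membrane protein gene (13.4, 24.1 and 4.63 CPM, at least 45.1-fold). Both had 0 counts at rest and differed widely among the 72 h libraries.

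Genes of DNA replication were higher by smaller factors, from a higher resting level. The list summed to 692, 737 and 719 CPM at rest and 3755, 2893 and 3037 CPM at 72 h. Rrm2 (chromosome 12, 24708241 to 24714146), the small subunit of ribonucleotide reductase, had the smallest adjusted p, with 0.915, 3.48 and 1.5001 CPM at rest and 175, 158 and 159.8 CPM at 72 h (log2FC of 6.38 ± 0.21 with adjusted p = 1.00e-18). For Rrm2 the log2FC was 7.09 without resting library 2. Uhrf1, which recruits the maintenance DNA methyltransferase to new strands, was at 8.79 ± 2.7 against 211 ± 30.1 CPM (log2FC of 4.58 ± 0.17 with adjusted p = 3.29e-18). Pole, a polymerase gene of the leading strand, was at 13.7 ± 1.8 against 118 ± 15.4 CPM (log2FC of 3.101 ± 0.15 with adjusted p = 5.88e-16). The replicative helicase genes Mcm5 (31.7 ± 6.5 against 196 ± 16.3 CPM, log2FC of 2.63 ± 0.13 with adjusted p = 6.69e-16) and Mcm6 (78.9 ± 6.7 against 255 ± 66.8 CPM, log2FC of 1.69 ± 0.14 with adjusted p = 1.90e-10) and the sliding clamp gene Pcna (76.1 ± 13.8 against 160.1 ± 39.2 CPM, log2FC of 1.07 ± 0.15 with adjusted p = 1.49e-06) were named after their values were seen. The 2 members that were not called were Gins4, near the resting level (28.2 ± 7.1 against 30.5 ± 9.3 CPM), and Pold2.

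Of 21 genes of G1 cyclins, CDKs, their inhibitors and E2F factors, 16 were higher and 2 lower (median 1.20). The higher ones included the E-type cyclin genes Ccne1 (8.37 ± 2.4 against 54.3 ± 5.2 CPM, log2FC of 2.69 ± 0.19 with adjusted p = 5.08e-12) and Ccne2 (1.33 ± 0.47 against 27.3 ± 2.9 CPM, log2FC of 4.32 ± 0.38 with adjusted p = 3.07e-10), which open S phase. The repressor genes E2f7 (0.712 ± 0.46 against 37.7 ± 4.5 CPM, log2FC of 5.65 ± 0.40 with adjusted p = 2.63e-12) and E2f8 (0.929 ± 0.55 against 66.4 ± 21.6 CPM, log2FC of 6.12 ± 0.37 with adjusted p = 1.79e-13), which shut E2F targets late in S phase, were higher too. For E2f7 the log2FC was 6.28 without resting library 1. The 2 lower ones were D-type cyclin genes, Ccnd3 and Ccnd2 (1 lower with any library but resting library 3 left out, with limma voom, with the replicate number as a block, in a fit of the compared groups alone or without mitochondrial and ribosomal protein genes). Ccnd2, named after its value was seen, was at 347, 432 and 410.1 CPM at rest and 125, 176 and 195 CPM at 72 h, without overlap (log2FC of -1.26 ± 0.12 with adjusted p = 2.28e-09). Cdkn1b, which encodes the CDK inhibitor p27, a brake on division, was called higher (112, 120.3 and 120.3 against 156, 152 and 147 CPM, log2FC of 0.37 ± 0.13 with adjusted p = 0.0279). Cdkn1b lost its call without resting library 1 (adjusted p = 0.0606). The call of Cdkn1b was also lost with library totals alone, without the filter on low counts and with upper-quartile factors (adjusted p 0.0809 to 0.129). Cdkn1b was also named after its value was seen. The pocket protein gene Rbl2, of the complex that represses cell cycle genes, was near the resting level (132 ± 6.8 against 130.4 ± 13.2 CPM, 95% interval -0.26 to 0.22).

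Promoter sequence was examined in the 250 bases before the start of each gene, for the 8912 of the 12686 genes with a window in RefSeq (GRCm38.p6), whose start can differ from that of the gene coordinates above. The motifs were the CHR element (TTTGAA or TTCGAA), the CCAAT box (CCAAT), the E2F site (TTTCCCGC, TTTGGCGC or TTTCGCGC), the interferon element ISRE (GAAA, any 2 bases, then GAAA) and the E-box (CACGTG), each on both strands and with overlaps counted. Of 29 windows of G2 and mitosis genes, 24 held a CCAAT box (82.8%, against 36.8% of all windows) and 11 a CHR element (37.9% against 12.4%). Of 25 windows of replication genes, 6 held an E2F site (24% against 3.27%) and 15 a CCAAT box (60%). Over all called genes, 5.68% of the windows of higher, 2.43% of lower and 3.40% of near genes held an E2F site. A match is a description of letters, and binding was not measured. The stretches printed here show, with matches in capitals, the 2 called members of smallest adjusted p that hold the motif of their list. For G2 and mitosis both a CHR element and a CCAAT box were required. Only windows whose start lay within 100 bases of the gene start were used, and some genes were left out of this choice. Bub1b (chr2:118598003-118598122, plus strand, 208 to 89 bases before the start) and Kif11 (chr19:37376317-37376381, plus strand, 65 to 1 bases before the start) each hold 1 CHR element and 1 CCAAT box, the latter read as ATTGG on this strand.
Bub1b: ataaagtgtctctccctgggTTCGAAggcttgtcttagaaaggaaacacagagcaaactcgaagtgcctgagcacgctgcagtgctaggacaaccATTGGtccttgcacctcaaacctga
Kif11: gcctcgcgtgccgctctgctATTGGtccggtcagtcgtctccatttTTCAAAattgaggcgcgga
Mcm5 (chr8:75109336-75109387, plus strand, 173 to 122 bases before the start) holds 2 overlapping E2F matches and Mcm6 (chr1:128359725-128359835, minus strand, 130 to 20 bases before the start) holds 3. Bases of the window past the start were sought in GENCODE transcripts. They were found in 0 transcripts of Mcm5 and of Mcm6, against 1 each for Bub1b, Kif11, Ifit1 and Ifit3, so the starts used for Mcm5 and Mcm6 are uncertain.
Mcm5: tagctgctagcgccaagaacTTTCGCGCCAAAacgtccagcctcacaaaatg
Mcm6: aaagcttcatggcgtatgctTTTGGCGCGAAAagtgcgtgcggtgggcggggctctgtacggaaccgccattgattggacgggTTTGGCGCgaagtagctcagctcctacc

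Most genes of ribosome biogenesis were below the resting level. Of 29 tested genes of ribosome biogenesis, 19 were lower and 2 higher (1 with library totals alone, upper-quartile factors or a fit of the compared groups alone), 5 were near, and the list summed to 3231, 3238 and 3249 CPM at rest and 2988, 3035 and 2498 CPM at 72 h. The same sum had been 12386 ± 492 CPM in 41BB+ cells at 0 h and 17754 ± 335 CPM at 24 h. Polr1b (chromosome 2, 129100995 to 129126594), a subunit of RNA polymerase I, was at 24.7, 31.3 and 34.8 CPM at rest and 9.62, 13.1 and 7.53 CPM at 72 h, without overlap (log2FC of -1.59 ± 0.19 with adjusted p = 1.68e-07). Utp20, of the small subunit processome, was at 105 ± 9.8 against 40.5 ± 11.9 CPM (log2FC of -1.38 ± 0.15 with adjusted p = 2.51e-08). Wdr43, of the same complex, was at 198 ± 8.0 against 94.9 ± 23.5 CPM (log2FC of -1.07 ± 0.13 with adjusted p = 8.77e-08). Ncl (chromosome 1, 86344719 to 86359400), which encodes the abundant nucleolar protein nucleolin, was near the resting level, with 841, 808 and 814 CPM at rest and 943, 957 and 923 CPM at 72 h (95% interval 0.03 to 0.37, adjusted p = 0.0603), a small difference without overlap, after 4186 ± 107 CPM in 41BB+ cells at 0 h and 6822 ± 117 CPM at 24 h. Npm1, which encodes nucleophosmin, was near as well and called slightly higher (473 ± 32.7 against 581 ± 64.3 CPM, log2FC of 0.30 ± 0.10 with adjusted p = 0.0219). Npm1 lost its call without 72 h 41BB+ library 3 (adjusted p = 0.0589). The call of Npm1 was also lost with library totals alone, with limma voom and quality weights, in a fit of the compared groups alone and with upper-quartile factors (adjusted p 0.05004 to 0.178). The other higher member was Wdr12, of the large subunit assembly complex, at 33.9, 29.1 and 31.8 against 251, 235 and 109 CPM (log2FC of 2.65 ± 0.27 with adjusted p = 4.82e-07). In promoter windows, 2 of 24 genes of the list held the E-box CACGTG (8.33%, against 8.49% of all windows).

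Cytosolic ribosomal protein genes were lower in 24 of 32 cases and higher in 2 (1 with library totals alone or upper-quartile factors), with 9 near (median -0.49), and summed to 25072, 26629.8 and 30525 CPM at rest and 20162, 20781 and 17582 CPM at 72 h. With 1 library left out 16 to 22 were lower, and 16 (median -0.33) without resting library 3. Rps7 (707 ± 99.8 against 311 ± 12.7 CPM, log2FC of -1.18 ± 0.12 with adjusted p = 7.76e-09), Rplp2 (1709.6 ± 97.1 against 822 ± 46.0 CPM, log2FC of -1.06 ± 0.11 with adjusted p = 1.80e-08), Rpl5 (1685 ± 247 against 870.3 ± 47.3 CPM, log2FC of -0.95 ± 0.11 with adjusted p = 8.58e-08) and Rps14 (490.4 ± 36.0 against 253 ± 28.2 CPM, log2FC of -0.96 ± 0.12 with adjusted p = 4.13e-07) changed without overlap of the libraries. Rplp0 was near the resting level (2694 ± 343 against 2439.9 ± 439 CPM), as was Rpl4, which was also called (log2FC of -0.32 ± 0.090 with adjusted p = 0.00686). Rpl4 lost its call without resting library 3 (0.116) and 72 h 41BB+ library 2 (0.0924), the adjusted p in parentheses. These genes have many processed copies, so their single values are uncertain. Translation factors were spread around rest, with 5 higher, 5 lower and 12 of 21 near (median 0.08, or -0.02 with library totals alone and -0.03 with upper-quartile factors). Without 72 h 41BB+ library 3, 8 were higher. Without resting library 3 or 72 h 41BB+ library 2, 2 were lower, and without 72 h 41BB+ library 1, 3 were lower. The elongation factor gene Eef2 was higher (2032, 2171 and 2338 against 3179.9, 2698 and 3161 CPM, log2FC of 0.47 ± 0.089 with adjusted p = 0.000132). So was Eif4ebp1, the cap-dependent translation repressor (3.68 ± 1.5 against 13.7 ± 1.4 CPM, log2FC of 1.89 ± 0.34 with adjusted p = 6.65e-05). Eif1, of start codon selection, was lower (162 ± 23.4 against 78.4 ± 14.7 CPM, log2FC of -1.05 ± 0.13 with adjusted p = 2.16e-07). So was Eef1e1, of the tRNA synthetase complex (22.2 ± 6.0 against 7.76 ± 0.85 CPM, log2FC of -1.51 ± 0.22 with adjusted p = 2.51e-06). Eef1b2, of the elongation complex, was near.

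Myc itself was lower than at rest. Myc (chromosome 15, 61985391 to 61990374) was at 106, 94.0 and 96.9 CPM in the resting libraries and 17.8, 25.9 and 19.7 CPM at 72 h, and every 72 h library was below every resting one (log2FC of -2.23 ± 0.14 with adjusted p = 2.87e-13). In 41BB+ cells it had been at 286 ± 19.8 CPM at 0 h and 320.5 ± 14.2 CPM at 24 h. The MYC antagonist gene Mxd4 moved the other way, at 44.9, 76.6 and 64.5 against 164, 169 and 199 CPM (log2FC of 1.52 ± 0.21 with adjusted p = 2.21e-06). Mycn, a MYC family member, had 3 counts at rest and 36 at 72 h, a ratio of 11.5 (exact 95% counting interval 3.64 to 58.5), with an adjusted p of 0.0128. Mycn lost its call without resting library 1 (0.0650) and resting library 3 (0.0639), the adjusted p in parentheses. Mga (log2FC of -0.32 ± 0.13 with adjusted p = 0.0477) and Mlxip (95% interval -0.17 to 0.51), which encode further MAX and MLX partners, were near, and Mga was also called lower. Mga lost its call without resting library 1 (0.313), resting library 2 (0.0882), resting library 3 (0.0954), 72 h 41BB+ library 1 (0.156), 72 h 41BB+ library 2 (0.178) and 72 h 41BB+ library 3 (0.124), the adjusted p in parentheses. The call of Mga was also lost with limma voom and quality weights, without the filter on low counts, in a fit of the compared groups alone and without mitochondrial and ribosomal protein genes (adjusted p 0.0545 to 0.142). Of the 11 tested members of this network 3 were higher, 3 lower and 3 near, and 1 was lower when any library but 72 h 41BB+ library 2 was left out, with limma voom, without the filter on low counts, in a fit of the compared groups alone or without mitochondrial and ribosomal protein genes.

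Heat shock proteins and chaperonins, which fold new proteins in growing cells, were higher in 5 of 22 cases, lower in 6 and near in 11. Their median was 0.12, or -0.002 with upper-quartile factors. Without 72 h 41BB+ library 3, 12 were higher. Of all genes from 100 to 500 CPM, 47.8% were near the resting level. Hsp90aa1 was at 309, 266 and 271 CPM at rest and 337, 324 and 249 CPM at 72 h (95% interval -0.11 to 0.33), after 1277 ± 103 and 2468 ± 40.7 CPM in 41BB+ cells at 0 and 24 h. The higher members included the constitutive HSP90 gene Hsp90ab1 (1348 ± 55.2 against 2157 ± 208 CPM, log2FC of 0.68 ± 0.087 with adjusted p = 4.16e-07), its endoplasmic relative Hsp90b1 (163 ± 11.8 against 281 ± 19.9 CPM, log2FC of 0.78 ± 0.096 with adjusted p = 1.99e-07) and the chaperonin gene Tcp1 (179 ± 5.9 against 297 ± 30.1 CPM, log2FC of 0.73 ± 0.0996 with adjusted p = 1.04e-06). The cochaperone gene Dnaja1 was lower (174 ± 35.2 against 68.7 ± 13.8 CPM, log2FC of -1.34 ± 0.16 with adjusted p = 7.34e-08). Cct5 was near and called (log2FC of 0.34 ± 0.10 with adjusted p = 0.00969). The call of Cct5 was lost with library totals alone, in a fit of the compared groups alone and with upper-quartile factors (adjusted p 0.0530 to 0.0959). Proteasome subunit genes were higher in 11 of 25 cases and lower in 0, with 10 near (median 0.33, and 9 to 15 higher with 1 library left out and 7 in a fit of the compared groups alone), for example Psmc1 (52.0 ± 3.8 against 95.5 ± 21.6 CPM, log2FC of 0.88 ± 0.15 with adjusted p = 3.30e-05), Psma1 (log2FC of 0.92 ± 0.16 with adjusted p = 4.31e-05), Psmc3 (log2FC of 0.72 ± 0.13 with adjusted p = 8.14e-05) and Psmb6 (log2FC of 0.70 ± 0.18 with adjusted p = 0.00290). Psmb1 and Psma2 were near.

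**Figure D4:**
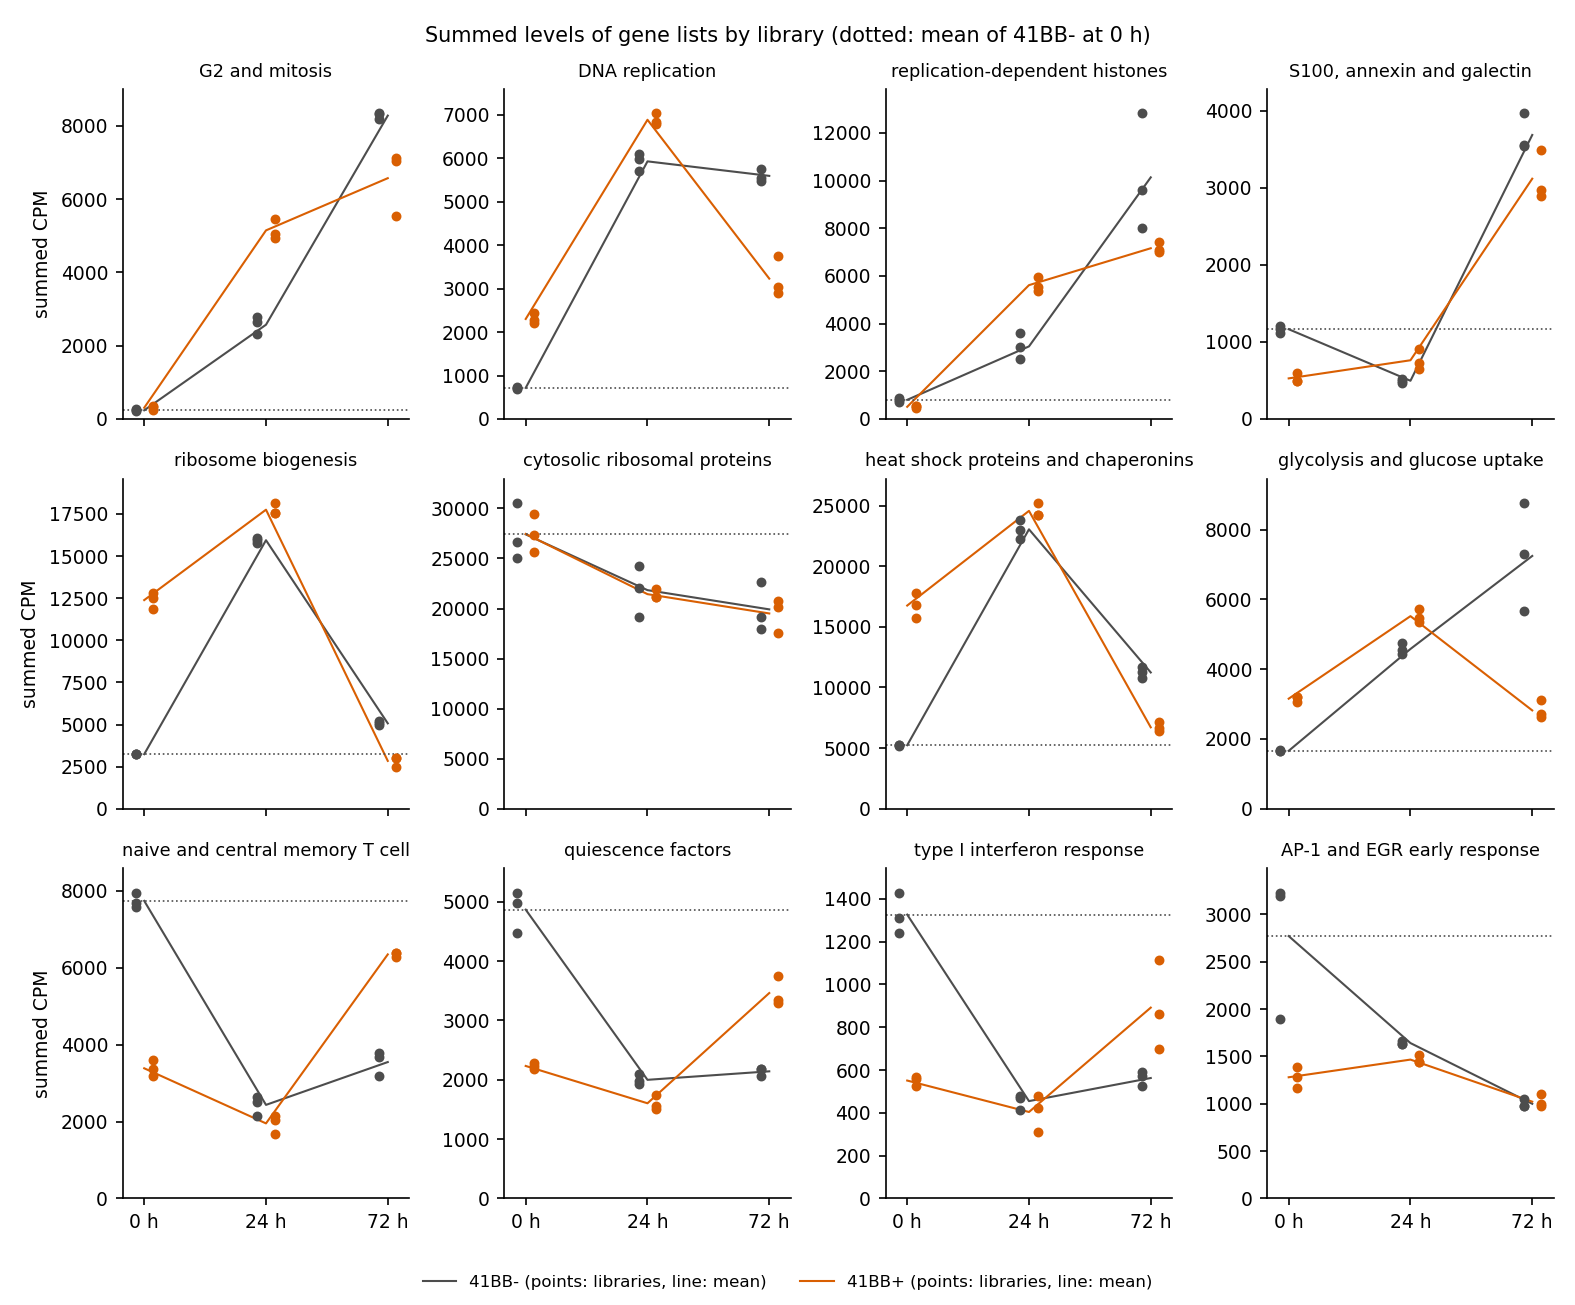
Summed CPM of 12 gene lists in each library of 41BB- and 41BB+ cells at 0, 24 and 72 h, with lines through the group means and a dotted line at the mean of 41BB- cells at 0 h. At 72 h the 41BB+ libraries lie far above the dotted line for G2 and mitosis and for histones, slightly below it for ribosome biogenesis, and further below it for the AP-1, interferon and quiescence lists.

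Several metabolic lists had medians moderately above rest, as did the housekeeping list (0.33, or 0.21 with upper-quartile factors). With those factors the median was 0.44 for glycolysis, 0.33 for oxidative phosphorylation and 0.14 for the tricarboxylic acid cycle. Whether these lists differed from the housekeeping list was not tested. Of 23 glycolysis genes 11 were higher and 1 lower (4 lower with library totals alone or upper-quartile factors, and 2 with DESeq2, without the filter on low counts, in a fit of the compared groups alone, with the covariate of Y-linked transcripts or without resting library 3), with 3 near (median 0.55), and the sum was 1646, 1680.0 and 1656 CPM at rest and 3111, 2729.9 and 2618 CPM at 72 h. The pyruvate kinase gene Pkm (chromosome 9, 59656368 to 59679375) was at 191, 169.7 and 187 against 734, 549.8 and 555 CPM (log2FC of 1.75 ± 0.12 with adjusted p = 1.61e-12). Ldha, lactate dehydrogenase, was at 166, 174 and 178 against 477, 459 and 358 CPM (log2FC of 1.32 ± 0.13 with adjusted p = 1.69e-09). Neither overlapped between the groups. Tpi1 (log2FC of 2.16 ± 0.22 with adjusted p = 2.99e-08) and Eno1 (log2FC of 1.14 ± 0.14 with adjusted p = 9.97e-08), enzymes of the same pathway, were higher as well, and Pdk1 (95% interval -0.50 to 0.03) and Hk1 (95% interval -0.02 to 0.51) were near. Ldha and Eno1 have processed copies, so their values are uncertain. Nuclear genes of oxidative phosphorylation were higher in 17 of 32 cases and lower in 0 (1 with library totals alone or upper-quartile factors), with 6 near (median 0.45). The ATP synthase genes Atp5b (236 ± 18.7 against 396 ± 52.4 CPM, log2FC of 0.75 ± 0.10 with adjusted p = 1.28e-06) and Atp5a1 (302 ± 41.8 against 488 ± 52.8 CPM, log2FC of 0.69 ± 0.10 with adjusted p = 4.33e-06) led, with Sdhd (log2FC of 1.14 ± 0.19 with adjusted p = 2.74e-05) and Atp5d (log2FC of 0.73 ± 0.14 with adjusted p = 0.000108), while Sdha and Ndufs1 were near. For the tricarboxylic acid cycle 10 of 23 were higher (6 with library totals alone or upper-quartile factors), 3 lower and 8 near (median 0.26, with 1 lower without resting library 1 or 72 h 41BB+ library 3). Got2 (log2FC of 0.95 ± 0.14 with adjusted p = 3.27e-06), Mdh2 (log2FC of 0.70 ± 0.11 with adjusted p = 1.27e-05) and Fh1 (log2FC of 1.19 ± 0.20 with adjusted p = 2.00e-05) were higher, Suclg2, of the GTP-forming succinyl-CoA ligase, was lower (77.3 ± 8.5 against 32.1 ± 8.7 CPM, log2FC of -1.27 ± 0.19 with adjusted p = 4.41e-06), and Ogdh was near.

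Lipid synthesis was the metabolic list with the highest median (0.76), with 16 of 26 members higher, 0 lower and 5 near. Scd2 (chromosome 19, 44293674 to 44306864), a fatty acid desaturase gene, was at 37.8, 29.1 and 42.3 CPM at rest and 341, 301 and 241 CPM at 72 h, with every 72 h library above every resting one (log2FC of 3.01 ± 0.21 with adjusted p = 3.86e-10). The cholesterol synthesis genes Sqle (8.02 ± 1.9 against 31.3 ± 6.1 CPM, log2FC of 1.96 ± 0.21 with adjusted p = 1.62e-08) and Cyp51 (log2FC of 1.39 ± 0.18 with adjusted p = 4.49e-07) were higher, while Elovl5 and the citrate lyase gene Acly were near. Fatty acid oxidation genes were higher in 6 of 17 cases and lower in 1 (0 without 72 h 41BB+ library 2), with 3 near (median 0.32). Cpt1a, which controls entry of fatty acids into mitochondria, was at 44.9, 43.7 and 51.6 against 83.1, 82.2 and 121 CPM (log2FC of 1.03 ± 0.19 with adjusted p = 9.46e-05). Acadl was at 49.2 ± 1.7 against 96.4 ± 11.3 CPM (log2FC of 0.97 ± 0.13 with adjusted p = 1.13e-06). Hadha was at 110.2 ± 8.5 against 169 ± 15.5 CPM (log2FC of 0.62 ± 0.12 with adjusted p = 0.000154). The one lower member was Hadhb, the partner subunit of Hadha (log2FC of -0.74 ± 0.21 with adjusted p = 0.00560). Hadhb lost its call without 72 h 41BB+ library 2 (adjusted p = 0.0556). Etfa and Acadvl were near.

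Genes of serine, folate and nucleotide synthesis were divided, with 7 of 22 higher, 6 lower and 6 near (median -0.01, with the sign not kept under all settings). Psat1, of serine synthesis, was at 14.6, 20.9 and 21.6 against 51.9, 48.4 and 44.9 CPM (log2FC of 1.34 ± 0.17 with adjusted p = 3.16e-07). Mthfd2, of the mitochondrial folate pathway, was at 17.9 ± 4.3 against 50.3 ± 11.1 CPM (log2FC of 1.49 ± 0.19 with adjusted p = 4.39e-07). Paics, of purine synthesis, was at 58.8 ± 14.5 against 143 ± 9.6 CPM (log2FC of 1.28 ± 0.14 with adjusted p = 1.82e-08). Impdh1, of guanine nucleotide synthesis, was lower (78.3 ± 0.92 against 44.0 ± 0.999 CPM, log2FC of -0.83 ± 0.13 with adjusted p = 1.60e-05). Cad, which starts pyrimidine synthesis (76.3, 77.9 and 66.0 against 69.1, 77.9 and 53.6 CPM), and Shmt2 (64.1, 76.9 and 61.5 against 96.5, 68.5 and 38.5 CPM) were near the resting level, after means of 491 and 365 CPM in 41BB+ cells at 24 h. Of 21 tRNA synthetase and ATF4 stress genes, 7 were higher, 1 lower and 8 near (median 0.19), with 0 lower without resting library 1 or 72 h 41BB+ library 3 and in a fit of the compared groups alone, and 2 lower with upper-quartile factors. Trib3, an ATF4-induced pseudokinase gene, was at 0.610, 0.950 and 0.900 against 18.9, 19.5 and 8.68 CPM (log2FC of 4.203 ± 0.53 with adjusted p = 2.57e-07). Sesn2, a sensor of leucine supply, was at 4.27, 4.43 and 3.6002 against 15.2, 23.1 and 22.6 CPM (log2FC of 2.30 ± 0.35 with adjusted p = 6.18e-06). The synthetase gene Aars was higher (log2FC of 1.22 ± 0.16 with adjusted p = 7.79e-07) and Eprs and Sars were near. Of 13 amino acid transporter genes 3 were higher, 2 lower and 4 near (median 0.08, or -0.03 with library totals alone and -0.04 with upper-quartile factors or without 72 h 41BB+ library 1). A fit of the compared groups alone left 1 higher. Slc43a1, a transporter of large neutral amino acids, was at 2.44, 0.633 and 1.20 against 58.6, 70.3 and 59.9 CPM (log2FC of 5.42 ± 0.41 with adjusted p = 1.03e-11). For Slc43a1 the log2FC was 6.07 without resting library 1. The arginine transporter gene Slc7a1 was lower (101 ± 15.5 against 51.9 ± 11.9 CPM, log2FC of -0.96 ± 0.15 with adjusted p = 1.22e-05), the glutamine transporter gene Slc38a2 higher with overlapping libraries (149, 125 and 109 against 354, 264 and 132 CPM, log2FC of 0.97 ± 0.28 with adjusted p = 0.0127), and Slc38a1 near and called (log2FC of 0.34 ± 0.12 with adjusted p = 0.0201). The call of Slc38a2 was lost in a fit of the compared groups alone (adjusted p = 0.0622). Slc38a1 lost its call without resting library 3 (adjusted p = 0.0882). The call of Slc38a1 was also lost with library totals alone, in a fit of the compared groups alone and with upper-quartile factors (adjusted p 0.0717 to 0.114). Slc1a5 was near.

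Polyamines, small cations that cells build from ornithine and decarboxylated S-adenosylmethionine, are needed for growth and for translation. Of 16 tested autosomal genes, 5 were higher, 4 lower and 1 near (median -0.12, or 0.13 without resting library 2 and 0.12 without 72 h 41BB+ library 3), and the sum was 820.5, 958 and 776 CPM at rest and 933, 851 and 799 CPM at 72 h. It had been 1519 ± 77.6 CPM in 41BB+ cells at 0 h and 2482 ± 62.4 CPM at 24 h. In the synthesis branch, Odc1 (chromosome 12, 17544794 to 17551505), ornithine decarboxylase, was at 63.8, 121 and 48.9 CPM at rest and 76.4, 87.1 and 48.6 CPM at 72 h, overlapping (log2FC of -0.14 ± 0.26 with adjusted p = 0.716). Its mean in 41BB+ cells was 277 CPM at 0 h and 619 CPM at 24 h. The spermidine synthase gene Srm was at 10.1, 20.9 and 18.9 against 13.99, 21.01 and 6.08 CPM (log2FC of -0.28 ± 0.35 with adjusted p = 0.559), also overlapping, after 140.0 and 257 CPM. Amd1, S-adenosylmethionine decarboxylase, was lower although the groups touched (60.1, 47.2 and 32.7 against 33.5, 21.9 and 19.7 CPM, log2FC of -0.90 ± 0.21 with adjusted p = 0.00117), while its near-identical copy Amd2 was not called (7.93, 10.8 and 7.5004 against 11.7, 7.61 and 4.92 CPM, log2FC of -0.11 ± 0.27 with adjusted p = 0.778), and reads of the copies may be split between them. The interval of Odc1 reached beyond 1.5-fold in either direction (95% interval -0.68 to 0.41), so it was neither called nor near.

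The genes that feed and recycle the pathway differed among themselves. Mat2a, the S-adenosylmethionine synthetase, was lower (87.6, 143 and 103 against 68.8, 67.9 and 37.6 CPM, log2FC of -0.93 ± 0.20 with adjusted p = 0.000874). Mat2b, its regulatory subunit, was not called (62.2 ± 11.6 against 47.6 ± 8.3 CPM, adjusted p = 0.0997). Mtap, which salvages the byproduct of spermidine and spermine synthesis, was lower (63.8, 78.8 and 63.6 against 19.5, 18.3 and 26.6 CPM, log2FC of -1.67 ± 0.16 with adjusted p = 2.39e-09). Ahcy, which clears S-adenosylhomocysteine, was higher (11.3, 7.92 and 14.1 against 51.9, 50.8 and 42.8 CPM, log2FC of 2.12 ± 0.17 with adjusted p = 8.28e-11). Both changed without overlap. Among regulators, the antizyme gene Oaz1 was higher (103 ± 9.3 against 139.9 ± 9.1 CPM, log2FC of 0.45 ± 0.13 with adjusted p = 0.00730), Oaz2 was not called (adjusted p = 0.155), and the antizyme inhibitor gene Azin1 was near (59.8, 69.0 and 66.0 against 67.3, 63.9 and 71.8 CPM, 95% interval -0.21 to 0.33). The call of Oaz1 was lost with upper-quartile factors (adjusted p = 0.05001). Of the oxidases, Smox was not called (10.6 ± 1.5 against 5.79 ± 1.1 CPM, adjusted p = 0.0563) and Paox was higher with overlapping libraries (3.36, 4.75 and 4.2002 against 13.99, 10.7 and 4.63 CPM, log2FC of 1.24 ± 0.38 with adjusted p = 0.00968). Paox lost its call without 72 h 41BB+ library 1 (adjusted p = 0.0780). The call of Paox was also lost in a fit of the compared groups alone (adjusted p = 0.0569). The polyamine transporter genes Atp13a2 (13.6 ± 2.1 against 38.8 ± 11.6 CPM, log2FC of 1.51 ± 0.28 with adjusted p = 9.45e-05) and Atp13a3 (157 ± 27.3 against 241 ± 30.2 CPM, log2FC of 0.61 ± 0.12 with adjusted p = 0.000206) were higher, and Slc3a2, a shared transporter subunit, was lower (82.6 ± 9.3 against 46.9 ± 3.8 CPM, log2FC of -0.82 ± 0.13 with adjusted p = 1.71e-05). Spermidine also serves to make hypusine, a modified residue of the translation factor eIF5A. Eif5a was at 178, 161 and 164 CPM at rest and 332, 317 and 167 CPM at 72 h (log2FC of 0.70 ± 0.17 with adjusted p = 0.00266), with 72 h library 3 inside the resting range, after 1046 and 1177 CPM in 41BB+ cells at 0 and 24 h. Eif5a has processed copies, so its value is uncertain. The hypusine enzyme gene Dhps (15.3, 18.05 and 20.1 against 12.5, 20.4 and 14.8 CPM, log2FC of -0.17 ± 0.25 with adjusted p = 0.630) and Eif5a2 (3.27 ± 0.58 against 4.82 ± 1.7 CPM, log2FC of 0.55 ± 0.50 with adjusted p = 0.400) were not called.

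The naive program stood below rest for most genes, though not for Tcf7. Of 19 tested genes typical of naive or central memory T cells, 13 were lower, 2 higher (1 without any of the resting libraries or 72 h 41BB+ library 2, and with library totals alone or upper-quartile factors) and 1 near (median -0.64), with a sum of 7692, 7944 and 7573 CPM at rest and 6389, 6266 and 6379.7 CPM at 72 h. In 41BB+ cells the sum had been 3384 ± 199 CPM at 0 h and 1952 ± 247 CPM at 24 h. With 1 library left out, 9 to 12 members of the list were lower. Tcf7 (chromosome 11, 52252371 to 52283014), which encodes TCF1, the factor of naive and stem-like T cells, was at 1179.9, 1254 and 1286 CPM at rest and 2179, 1832 and 1836 CPM at 72 h, above rest in all 3 libraries (log2FC of 0.65 ± 0.11 with adjusted p = 4.81e-05). The other higher member was Actn1, an actin crosslinker gene (475, 451 and 501 against 1218, 991 and 514 CPM, log2FC of 0.93 ± 0.31 with adjusted p = 0.0314). Actn1 lost its call without resting library 1 (0.0695), resting library 2 (0.0751), resting library 3 (0.0561), 72 h 41BB+ library 1 (0.117) and 72 h 41BB+ library 2 (0.0706), the adjusted p in parentheses. The call of Actn1 was also lost with library totals alone, without the filter on low counts and with upper-quartile factors (adjusted p 0.0527 to 0.0790). The growth factor binding protein gene Igfbp4 was the most reduced, at 152, 208 and 193 against 2.62, 6.09 and 6.66 CPM (log2FC of -5.16 ± 0.31 with adjusted p = 5.81e-13). Bcl2, which keeps resting T cells alive, was at 337, 319 and 232 against 74.9, 131 and 75.6 CPM (log2FC of -1.66 ± 0.24 with adjusted p = 3.51e-05). Nsg2 was at 216 ± 17.8 against 79.9 ± 21.8 CPM (log2FC of -1.43 ± 0.19 with adjusted p = 1.28e-06). Satb1, a chromatin organizer gene of T cells, was near and called lower (861 ± 38.3 against 674 ± 58.7 CPM, log2FC of -0.35 ± 0.11 with adjusted p = 0.0105). Satb1 lost its call without resting library 1 (0.0703), resting library 2 (0.0707), 72 h 41BB+ library 1 (0.0903) and 72 h 41BB+ library 2 (0.102), the adjusted p in parentheses.

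Further genes of the naive state, all named after their values were seen, were lower to different extents. Lef1, a partner of TCF1, was at 1109, 1069.6 and 989 against 578, 626 and 835 CPM (log2FC of -0.64 ± 0.14 with adjusted p = 0.000580). The groups did not overlap at Lef1. The differences of Ccr7, a chemokine receptor gene of lymph node entry (319 ± 66.0 against 221 ± 21.8 CPM, log2FC of -0.53 ± 0.15 with adjusted p = 0.00560), of S1pr1, the receptor of egress (384 ± 32.9 against 219 ± 63.9 CPM, log2FC of -0.81 ± 0.25 with adjusted p = 0.0198), and of Klf2, a transcription factor that activates S1pr1 (471 ± 101 against 254 ± 13.96 CPM, log2FC of -0.89 ± 0.32 with adjusted p = 0.0409), were less stable. Ccr7 lost its call without resting library 2 (0.138) and 72 h 41BB+ library 1 (0.0630), the adjusted p in parentheses. S1pr1 lost its call without resting library 2 (0.0874), resting library 3 (0.0612), 72 h 41BB+ library 1 (0.121) and 72 h 41BB+ library 2 (0.0946), the adjusted p in parentheses. Klf2 lost its call without resting library 1 (0.0578), resting library 2 (0.175), resting library 3 (0.0706), 72 h 41BB+ library 1 (0.101), 72 h 41BB+ library 2 (0.120) and 72 h 41BB+ library 3 (0.114), the adjusted p in parentheses. The call of Klf2 was also lost without the filter on low counts (adjusted p = 0.139). Il7r, the interleukin-7 receptor chain, was not called (409, 369 and 437 against 267, 399 and 416 CPM, 95% interval -0.62 to 0.28), after 46.3 ± 10.6 CPM in 41BB+ cells at 0 h.

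Of 19 quiescence factors 7 were lower, 1 higher and 9 near (median -0.17). Without resting library 1 or the filter on low counts, and with library totals alone or upper-quartile factors, 0 were higher. Of all genes from 100 to 500 CPM, 47.8% were near the resting level. Foxp1 (1087, 975 and 797 against 876, 829.9 and 943 CPM, 95% interval -0.34 to 0.12) and Foxo1 (396, 357 and 344 against 328, 292 and 383 CPM, 95% interval -0.45 to 0.19), transcription factor genes that keep T cells quiescent, overlapped between the groups. Btg1 (chromosome 10, 96617006 to 96622809), which promotes decay of messenger RNA in resting T cells, was at 905, 1019.5 and 833 against 266, 338 and 306 CPM, without overlap (log2FC of -1.60 ± 0.14 with adjusted p = 6.11e-10). The zinc finger factor genes Klf6 (245 ± 72.4 against 66.1 ± 11.2 CPM, log2FC of -1.89 ± 0.19 with adjusted p = 6.87e-09), Klf3 (272 ± 13.2 against 118 ± 15.5 CPM, log2FC of -1.21 ± 0.15 with adjusted p = 2.53e-07) and Klf7 (113 ± 11.4 against 60.6 ± 4.0 CPM, log2FC of -0.90 ± 0.17 with adjusted p = 0.000168) were lower too. The higher member was Cdkn1b, described with the cell cycle genes.

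The T cell receptor machinery was largely near its resting level or slightly below it. Of 21 genes of the CD8 coreceptor, CD3 and proximal signaling, 14 were near, 9 were called lower and 1 higher (2 without resting library 3, and 0 with library totals alone or upper-quartile factors), with some both near and called (median -0.23). The number lower was 9 to 14 over the scalings and 6 to 9 with 1 library left out. Cd8b1 (chromosome 6, 71322788 to 71337494) was at 757, 882 and 956 CPM at rest and 997, 879.8 and 677 CPM at 72 h (95% interval -0.30 to 0.26), after 389.9 ± 41.3 CPM in 41BB+ cells at 0 h. Cd8a was lower (584, 607 and 695 against 488, 432 and 394 CPM, log2FC of -0.52 ± 0.12 with adjusted p = 0.000884). So was Cd3e (399, 393 and 421 against 281, 253 and 300.2 CPM, log2FC of -0.54 ± 0.09998 with adjusted p = 8.96e-05). Of the coreceptor chains, Cd8b1 was thus near rest and Cd8a below it. The kinase gene Fyn (523 ± 60.1 against 364 ± 25.4 CPM, log2FC of -0.52 ± 0.10 with adjusted p = 0.000206) and the adhesion receptor gene Cd2 (387 ± 34.7 against 233 ± 65.7 CPM, log2FC of -0.73 ± 0.14 with adjusted p = 0.000102) were lower.

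**Figure D5:**
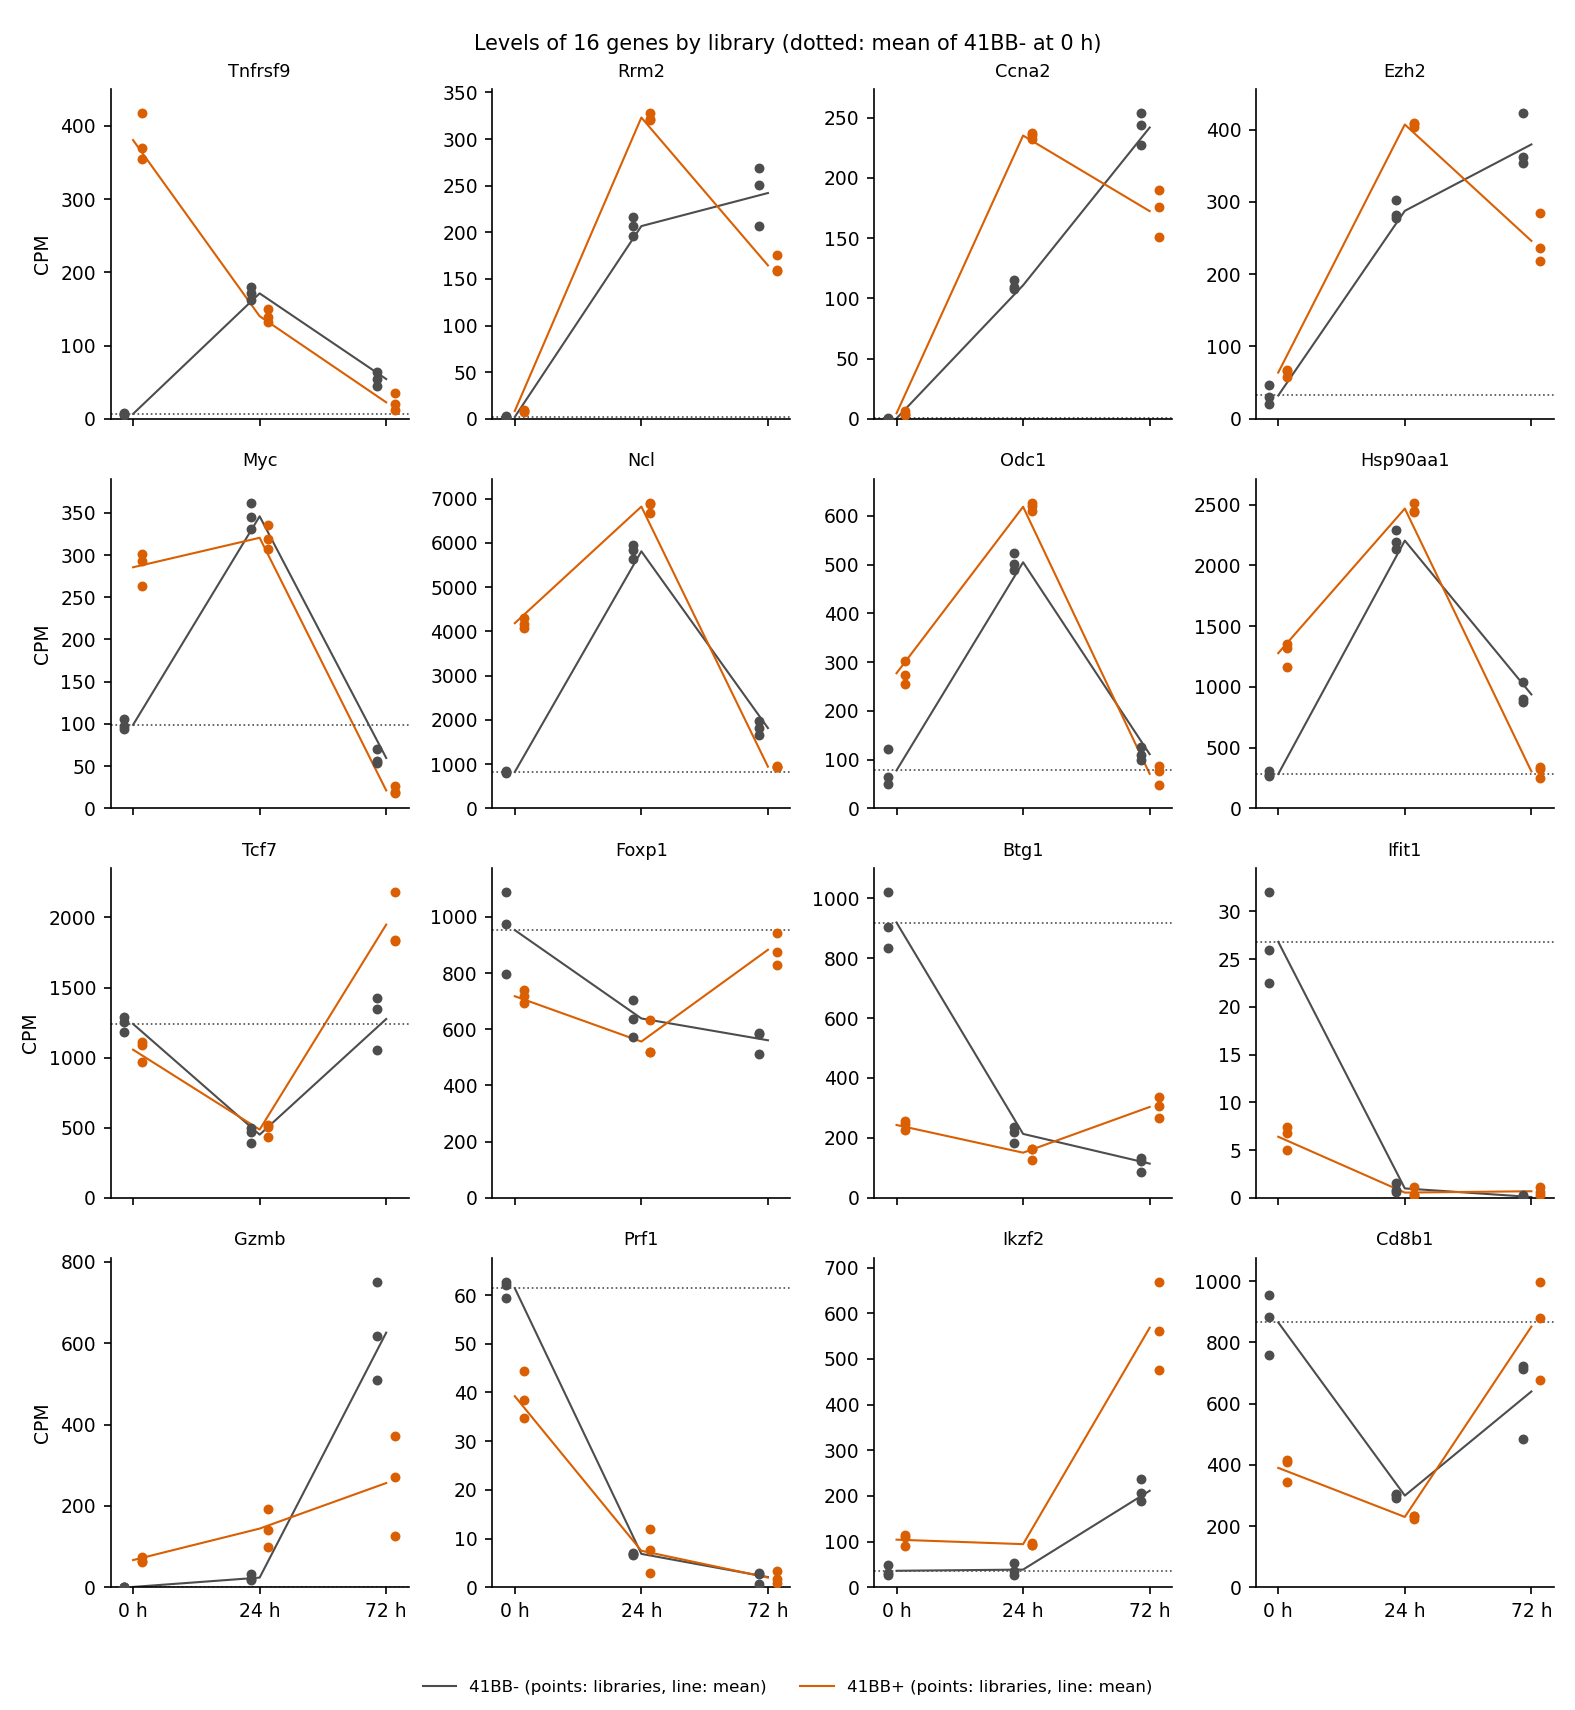
CPM of 16 genes in each library of 41BB- and 41BB+ cells at 0, 24 and 72 h, with lines through the group means and a dotted line at the mean of 41BB- cells at 0 h. At 72 h the 41BB+ libraries of Rrm2, Ccna2, Ezh2, Tcf7, Gzmb and Ikzf2 lie above the dotted line, those of Ncl, Odc1, Hsp90aa1, Foxp1 and Cd8b1 about it, and those of Myc, Btg1, Ifit1 and Prf1 below it. Tnfrsf9 is shown for the sort marker.

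Immediate early genes had the lowest median of all lists. Of 28 genes of the AP-1, EGR and early response list, 20 were lower, 1 higher (Rgs16, with 0 in a fit of the compared groups alone and 2 without resting library 2) and 3 near, and the sum was 3226, 3193 and 1891 CPM at rest and 972, 995 and 1099.8 CPM at 72 h. Resting library 3 was the lowest of its group in that sum. Fos (chromosome 12, 85473890 to 85477273), an AP-1 subunit, was at 195, 220.4 and 44.7 CPM at rest and 0.291, 0 and 0 CPM at 72 h, that is 1484 counts against 1, a ratio of 1545 (exact 95% counting interval 277 to 61066). The call of Fos was lost with limma voom and quality weights (adjusted p = 0.134). Jun, the partner subunit, named after its value was seen, was at 394, 485 and 213 against 12.2, 17.7 and 8.68 CPM (log2FC of -4.82 ± 0.40 with adjusted p = 1.85e-07). Egr1, an early growth response factor, was at 76.3, 60.2 and 45.0 against 1.75, 4.26 and 2.03 CPM (log2FC of -4.49 ± 0.30 with adjusted p = 1.01e-12). Cd69, an early activation marker that retains cells in tissue, was at 198, 218 and 152 against 24.5, 37.1 and 19.1 CPM (log2FC of -2.81 ± 0.22 with adjusted p = 5.31e-10). None of these 4 genes overlapped between the groups, and Fos was well lower in resting library 3 than in the other two resting libraries. The MAP kinase phosphatase genes Dusp1 (103 ± 44.6 against 4.72 ± 0.18 CPM, log2FC of -4.43 ± 0.34 with adjusted p = 6.07e-11) and Dusp2 (144 ± 24.8 against 44.3 ± 4.9 CPM, log2FC of -1.70 ± 0.15 with adjusted p = 2.23e-10) were lower, while Jund (95% interval -0.12 to 0.54) and the RNA decay factor gene Zfp36l2 (95% interval -0.44 to 0.27) were near.

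Genes of the type I interferon response were lower as well. Of 27 tested, 19 were lower, 1 higher (0 without resting library 2, resting library 3 or 72 h 41BB+ library 3, and 0 with the replicate number as a block) and 1 near, and the list summed to 1428, 1309 and 1243 CPM at rest and 699, 861 and 1116 CPM at 72 h. Ifit1 (chromosome 19, 34640871 to 34650009), an antiviral protein that binds foreign RNA, was at 25.9, 32.0 and 22.5 against 0.583, 0.304 and 1.16 CPM (log2FC of -5.22 ± 0.56 with adjusted p = 1.32e-08), and its neighbour Ifit3 (chromosome 19, 34583531 to 34588731) at 36.6, 38.6 and 25.5 against 0.874, 1.83 and 2.61 CPM (log2FC of -4.22 ± 0.51 with adjusted p = 1.23e-07). Mx1, an antiviral GTPase gene, had 180 counts at rest and 2 at 72 h, a ratio of 93.7 (exact 95% counting interval 25.6 to 779.6). Usp18, which removes ISG15 and dampens interferon signaling, was at 27.8, 30.4 and 28.5 against 0, 0 and 1.45 CPM (log2FC of -5.78 ± 0.61 with adjusted p = 7.92e-09). For Usp18 the log2FC was -5.17 without 72 h 41BB+ library 1. Without 72 h 41BB+ library 3, no count of Usp18 was left in that group. Ifit3b (120 counts at rest) and Oasl1 (80 counts) had 0 counts at 72 h and were at least 41.6-fold and at least 27.8-fold lower. Ifit1 and Ifit3 did not overlap between the groups. Mx1, Usp18, Ifit3b and Oasl1 are among the 10 largest decreases, a rule that admits only genes without overlap. Irf7, the factor that amplifies the response, named after its value was seen, kept 17.1 ± 6.2 of 55.3 ± 10.03 CPM (log2FC of -1.69 ± 0.40 with adjusted p = 0.00167), Parp14 was near, and the higher member was Ifi203, also named after its value was seen (218, 169 and 192 against 210.1, 244 and 293 CPM, log2FC of 0.37 ± 0.15 with adjusted p = 0.0477). Ifi203 lost its call without resting library 2 (0.132), resting library 3 (0.0590) and 72 h 41BB+ library 3 (0.155), the adjusted p in parentheses. The call of Ifi203 was also lost with DESeq2, with RLE factors, with library totals alone, in a fit of the compared groups alone, with the replicate number as a block and with upper-quartile factors (adjusted p 0.0549 to 0.162). Of 19 promoter windows of the list, 9 held an ISRE (47.4%, against 2.77% of all windows, 2.16% of higher and 4.02% of lower genes). Ifit1 (chr19:34640765-34640833, plus strand, 124 to 56 bases before the start) and Ifit3 (chr19:34583353-34583436, plus strand, 176 to 93 bases before the start) were chosen by the same rule as the stretches above. Each holds 2 matches, in capitals, read on this strand as TTTC, 2 further bases and TTTC.
Ifit1: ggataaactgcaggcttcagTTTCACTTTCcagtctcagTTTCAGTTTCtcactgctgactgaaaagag
Ifit3: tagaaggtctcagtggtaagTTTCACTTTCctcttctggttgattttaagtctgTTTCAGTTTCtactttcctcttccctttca

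Antigen presentation genes that interferon also controls were partly lower. Of 19 MHC class I and peptide loading genes 10 were lower, 3 higher and 5 near (median -0.45). H2-K1, a classical class I gene, was at 1052, 1155 and 1165 against 552, 602 and 629 CPM, without overlap (log2FC of -0.92 ± 0.095 with adjusted p = 8.22e-09). The nonclassical genes H2-Q4 (222 ± 7.8 against 94.5 ± 4.2 CPM, log2FC of -1.23 ± 0.13 with adjusted p = 1.65e-08), H2-Q6 (281 ± 36.5 against 87.8 ± 28.2 CPM, log2FC of -1.68 ± 0.17 with adjusted p = 1.07e-08) and H2-Q7 (328 ± 21.8 against 99.0 ± 20.8 CPM, log2FC of -1.73 ± 0.13 with adjusted p = 1.65e-11) were lower, though H2-Q6 and H2-Q7 are close copies. The class I transactivator gene Nlrc5 (95% interval -0.45 to 0.08) and the immunoproteasome gene Psmb8 (95% interval 0.02 to 0.54) were near. Among 12 GIMAP and Schlafen genes, small GTPases of lymphocyte survival and regulators of quiescence, 6 were near, 3 lower and 2 higher (median -0.02, with the sign not kept under all settings). Gimap3 (412, 430.3 and 494 against 409.7, 441 and 406 CPM) and Slfn2 (218, 228 and 229 against 233, 248 and 246 CPM) were near and Gimap4 was higher (376 ± 35.4 against 528 ± 68.6 CPM, log2FC of 0.49 ± 0.13 with adjusted p = 0.00502), whereas the interferon-induced Slfn5 (50.6, 63.6 and 41.7 against 1.75, 1.22 and 2.32 CPM, log2FC of -4.85 ± 0.67 with adjusted p = 1.10e-05) and Slfn8 (141, 136 and 164 against 15.7, 18.9 and 37.3 CPM, log2FC of -2.61 ± 0.24 with adjusted p = 1.65e-09) were lower and Slfn3 higher (log2FC of 1.58 ± 0.30 with adjusted p = 0.000137). The Schlafen members thus ranged from near rest to far below it. Of 19 NF-kB genes 7 were lower, 3 higher and 6 near (median -0.28). The feedback inhibitor gene Tnfaip3 was lower (389.9, 407 and 124 against 58.0, 75.8 and 70.6 CPM, log2FC of -2.17 ± 0.35 with adjusted p = 0.000267). Nfkbiz (log2FC of -1.10 ± 0.20 with adjusted p = 0.000128) and Birc3 (log2FC of -0.88 ± 0.12 with adjusted p = 1.69e-06) were lower as well. Bcl3 was higher (log2FC of 1.48 ± 0.30 with adjusted p = 0.000291), and Tnip1 and Ikbke were near.

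Cytotoxic genes moved in opposite directions. Of 15 tested, 8 were lower, 3 higher and 1 near (median -0.53). Gzmb (chromosome 14, 56258838 to 56262260), the protease granzyme B, was at 1.22, 0.633 and 0.600 CPM at rest and 272, 372 and 125 CPM at 72 h, uneven among the 72 h libraries but far above rest in each (log2FC of 8.23 ± 0.64 with adjusted p = 2.46e-07). Prf1 (chromosome 10, 61297833 to 61304680), the pore-forming protein that lets granzymes into target cells, was at 59.5, 62.1 and 62.7 against 0.874, 3.35 and 1.74 CPM, far below rest in each (log2FC of -4.94 ± 0.41 with adjusted p = 1.33e-10). The granule proteoglycan gene Srgn was lower (237 ± 34.5 against 140.1 ± 9.5 CPM, log2FC of -0.75 ± 0.12 with adjusted p = 1.34e-05), the inhibitor gene Serpinb6b higher (12.9 ± 3.8 against 27.7 ± 6.8 CPM, log2FC of 1.10 ± 0.24 with adjusted p = 0.000657) and Lamp1 near. Nkg7, a granule membrane gene named after its value was seen, was lower (92.7 ± 9.6 against 63.8 ± 9.8 CPM, log2FC of -0.54 ± 0.16 with adjusted p = 0.00819). Gzma was at 1.53, 2.53 and 2.7001 against 0.291, 3.04 and 5.21 CPM, too few counts to place. Nkg7 lost its call without resting library 3 (0.0588) and 72 h 41BB+ library 3 (0.0783), the adjusted p in parentheses. Granzyme genes lie in clusters of close copies, so single values are uncertain.

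Of 15 cytokine and chemokine genes 2 were lower (1 without resting library 1 or 72 h 41BB+ library 3), 1 higher (2 without resting library 3 or 72 h 41BB+ library 1, and 3 without 72 h 41BB+ library 3) and 2 near. With DESeq2, the replicate number as a block or no filter on low counts 2 were higher, and with the covariate of Y-linked transcripts 4. With limma voom or a fit of the compared groups alone 1 was lower. The chemokine gene Ccl5, typical of memory CD8 cells, was at 40.6, 39.3 and 58.8 against 6.70, 8.22 and 9.84 CPM (log2FC of -2.48 ± 0.50 with adjusted p = 0.000642). Ccl1 was lower at few counts (log2FC of -2.15 ± 0.73 with adjusted p = 0.0186). Tgfb1 was higher (77.8 ± 9.8 against 116 ± 6.7 CPM, log2FC of 0.57 ± 0.13 with adjusted p = 0.000812). Ccl1 lost its call without resting library 1 (0.117), 72 h 41BB+ library 2 (0.0943) and 72 h 41BB+ library 3 (0.0805), the adjusted p in parentheses. The call of Ccl1 was also lost with limma voom and quality weights (adjusted p = 0.0848). For Ccl1 the log2FC was -4.08 without 72 h 41BB+ library 1 and -1.56 without 72 h 41BB+ library 2. Il16 and Ltb, both expressed by resting T cells, were near (295 ± 36.1 against 321 ± 23.2 CPM, 177 ± 20.7 against 201 ± 27.6 CPM). Cytokine receptor chains were called in both directions, with 6 of 21 higher, 7 lower and 2 near (median 0.26). The interleukin-2 receptor chains were higher. Il2ra (chromosome 2, 11642807 to 11693193) was at 2.75, 4.12 and 3.0002 against 166, 272 and 115 CPM (log2FC of 5.80 ± 0.33 with adjusted p = 2.15e-10). Il2rb was at 182, 180.2 and 178 against 466, 534 and 752 CPM (log2FC of 1.70 ± 0.14 with adjusted p = 7.29e-11), and neither gene overlapped between the groups. Il12rb2, of the interleukin-12 receptor, was at 3.48 ± 2.1 against 51.4 ± 18.7 CPM (log2FC of 3.87 ± 0.37 with adjusted p = 6.79e-09). For Il12rb2 the log2FC was 4.49 without resting library 1. Il6st, the shared signaling chain gp130 of the interleukin-6 family, was lower at 409, 406 and 407 against 119, 131 and 128 CPM (log2FC of -1.69 ± 0.10 with adjusted p = 1.70e-13), and Il17ra and Tgfbr1 were near. Of 20 SOCS, STAT, JAK and PIM genes 4 were higher, 5 lower (3 without resting library 2 or 72 h 41BB+ library 1) and 7 near. Socs2, a feedback inhibitor of cytokine receptors, was at 0, 1.58 and 0.600 against 18.7, 9.74 and 4.92 CPM (log2FC of 3.89 ± 0.61 with adjusted p = 1.04e-05). The kinase gene Pim1 was at 64.4 ± 14.4 against 143 ± 47.6 CPM (log2FC of 1.15 ± 0.24 with adjusted p = 0.000979). Jak1, a kinase of cytokine receptors, was lower (1146 ± 1.9 against 843 ± 69.8 CPM, log2FC of -0.44 ± 0.10 with adjusted p = 0.00135). So was Pim3 (log2FC of -1.59 ± 0.38 with adjusted p = 0.00160). For Socs2 the log2FC was 5.09 without resting library 2. For Pim3 the log2FC was -2.18 without 72 h 41BB+ library 2. Stat3 and Jak2 were near, with 127 ± 5.0 against 128 ± 6.4 CPM for Jak2.

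Transcription factors of effector and memory cells were mixed, with 9 of 26 higher, 7 lower and 1 near (median 0.51). Runx3, which sets the CD8 lineage and its cytotoxic program, was at 269, 272 and 236 against 998, 766 and 804 CPM (log2FC of 1.72 ± 0.12 with adjusted p = 2.92e-12). Ikzf2 (chromosome 1, 69531214 to 69687245), which encodes Helios, was at 49.7, 30.7 and 27.9 against 669, 560.2 and 476 CPM (log2FC of 3.97 ± 0.22 with adjusted p = 5.19e-12). Myb was at 61.9, 61.4 and 48.3 against 274, 294 and 124 CPM (log2FC of 2.01 ± 0.24 with adjusted p = 2.61e-06). Zbtb32 was at 0, 1.27 and 0 against 32.3, 38.7 and 35.3 CPM (log2FC of 6.32 ± 0.44 with adjusted p = 2.71e-12). Without resting library 2, no count of Zbtb32 was left in that group. Each of these 4 was higher in every 72 h library. Eomes, a T-box factor of memory cells, was lower (51.6, 54.5 and 61.5 against 9.91, 21.3 and 9.84 CPM, log2FC of -2.03 ± 0.32 with adjusted p = 8.12e-05), and the related Tbx21 higher (14.8 ± 4.5 against 29.3 ± 6.8 CPM, log2FC of 0.98 ± 0.25 with adjusted p = 0.00265). Tox, a factor of sustained antigen stimulation, was lower (201 ± 17.99 against 52.9 ± 14.9 CPM, log2FC of -1.92 ± 0.28 with adjusted p = 4.82e-05). Nfatc1 was near. Tbx21 and Tox were named after their values were seen. Zbtb7b, the CD4 lineage factor ThPOK, had 3 counts at rest and 243 at 72 h, a ratio of 77.8 (exact 95% counting interval 26.3 to 379.9), while Cd4 had 2 counts in each group. The X-linked Foxp3, outside the autosomal count, was at 1.53, 0 and 0 CPM at rest and 20.4, 26.5 and 10.4 CPM at 72 h (log2FC of 5.13 ± 0.75 with adjusted p = 2.73e-06). Without resting library 1, no count of Foxp3 was left in that group.

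Surface receptors of costimulation and inhibition were called in both directions. Tnfrsf9 itself (chromosome 4, 150914562 to 150946102), the gene of the sort marker, was at 4.88, 6.65 and 8.40 CPM in resting 41BB- cells and 19.5, 35.3 and 12.4 CPM in 72 h 41BB+ cells, higher without overlap (log2FC of 1.74 ± 0.30 with adjusted p = 7.67e-05) but far under the 381 ± 32.5 CPM of 41BB+ cells at 0 h. In 72 h 41BB- cells it was at 45.3, 53.8 and 63.6 CPM, above every 72 h 41BB+ library. Of 23 genes of the TNF receptor and ligand superfamily 9 were higher, 4 lower (2 without 72 h 41BB+ library 1) and 1 near (median 0.36), among them Tnfrsf4, which encodes OX40 (3.05, 3.17 and 3.30 against 8.16, 15.5 and 5.79 CPM, log2FC of 1.61 ± 0.33 with adjusted p = 0.000293), Traf3, an adaptor, lower (156 ± 10.6 against 109.8 ± 2.3 CPM, log2FC of -0.51 ± 0.13 with adjusted p = 0.00289), and Tnfsf8, the CD30 ligand, lower (log2FC of -0.66 ± 0.18 with adjusted p = 0.00415). Tnfsf8 lost its call without 72 h 41BB+ library 1 (adjusted p = 0.0856). Traf5 was near. Of 15 coinhibitory receptors 5 were higher, 4 lower and 1 near (median 0.18). Ctla4 (chromosome 1, 60887000 to 60915832) was at 50.04, 35.1 and 17.4 against 332, 330.0 and 414 CPM (log2FC of 3.39 ± 0.31 with adjusted p = 3.65e-07). Pdcd1, the gene of PD-1, was at 1.22, 2.22 and 1.5001 against 16.03, 15.5 and 29.2 CPM (log2FC of 3.602 ± 0.35 with adjusted p = 1.63e-09). Cd200 was at 1.54 ± 0.81 against 12.7 ± 3.3 CPM (log2FC of 3.02 ± 0.40 with adjusted p = 6.41e-07). Lag3 had 3 counts at rest and 231 at 72 h, a ratio of 74.0 (exact 95% counting interval 24.99 to 361). Cd96 was near. None of the 4 higher genes overlapped between the groups.

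Of 19 costimulatory and activation molecules 9 were higher, 3 lower (6 without 72 h 41BB+ library 3) and 2 near (median 0.48). Cd80, a ligand of CD28 and CTLA-4, was at 0.610, 1.90 and 1.20 against 207, 142 and 43.4 CPM, above rest in every library and uneven among the 72 h libraries (log2FC of 6.69 ± 0.71 with adjusted p = 3.21e-06). Slamf6, a marker of stem-like T cells, was at 116, 124 and 145 against 299.9, 318 and 295 CPM (log2FC of 1.246 ± 0.12 with adjusted p = 2.91e-09). The transferrin receptor gene Tfrc was at 63.2, 55.1 and 31.8 against 187, 208 and 138 CPM (log2FC of 1.83 ± 0.18 with adjusted p = 2.76e-08). Ly6e was at 193 ± 16.8 against 403 ± 7.7 CPM (log2FC of 1.06 ± 0.14 with adjusted p = 3.69e-07). Cd44, an adhesion receptor of antigen-experienced cells, named after its value was seen, was higher (58.0 ± 11.3 against 91.5 ± 23.8 CPM, log2FC of 0.66 ± 0.17 with adjusted p = 0.00399), and Cd28 and Cd226 were near. Of 19 integrins and homing receptors 7 were higher, 6 lower and 2 near (median 0.38, or -0.03 with limma voom and quality weights and -0.13 without 72 h 41BB+ library 3). The integrin chains Itgb1 (61.9, 74.4 and 87.3 against 239.5, 229 and 329 CPM, log2FC of 1.83 ± 0.14 with adjusted p = 1.19e-11) and Itgb3 (23.5, 25.3 and 24.001 against 115, 106 and 104 CPM, log2FC of 2.16 ± 0.22 with adjusted p = 4.55e-09) were higher. Ccr9, the receptor that leads T cells to the small intestine, was lower (92.8, 99.1 and 104 against 2.62, 6.09 and 1.45 CPM, log2FC of -4.86 ± 0.43 with adjusted p = 1.89e-08). So was Cxcr6 (log2FC of -1.54 ± 0.27 with adjusted p = 3.79e-05). For Ccr9 the log2FC was -5.53 without 72 h 41BB+ library 2. Itgb7 and Itgal were near. Of 16 NK-type receptor genes 4 could be tested and 3 were higher (1 without 72 h 41BB+ library 3 or in a fit of the compared groups alone), namely Klrk1, the gene of the receptor NKG2D, and Klrd1 and Klrc1, whose products pair with each other in a separate inhibitory receptor. Library 3 of the 72 h group was the highest in each, with Klrk1 at 10.49, 10.05 and 44.3 CPM against 3.36, 1.27 and 3.0002 at rest (log2FC of 3.07 ± 0.83 with adjusted p = 0.00796) and Klrd1 at 78.1, 107 and 220.3 against 77.5, 75.7 and 67.8 (log2FC of 0.88 ± 0.29 with adjusted p = 0.0246). Klrc1 had log2FC of 1.39 ± 0.55 with adjusted p = 0.0481. The call of Klrk1 was lost with limma voom and quality weights (adjusted p = 0.0526). For Klrk1 the log2FC was 2.04 without 72 h 41BB+ library 3. Klrd1 lost its call without resting library 3 (0.0678) and 72 h 41BB+ library 3 (0.182), the adjusted p in parentheses. The call of Klrd1 was also lost in a fit of the compared groups alone (adjusted p = 0.113). Klrc1 lost its call without resting library 1 (0.103), resting library 2 (0.193), 72 h 41BB+ library 2 (0.0577) and 72 h 41BB+ library 3 (0.200), the adjusted p in parentheses. The call of Klrc1 was also lost with RLE factors, with Y-linked transcripts as a covariate, with library totals alone, in a fit of the compared groups alone and with upper-quartile factors (adjusted p 0.0516 to 0.0935). For Klrc1 the log2FC was 2.22 without resting library 3.

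S100, annexin and galectin genes, which are typical of effector cells, were higher in 10 of 14 cases and lower in 1 (median 1.46), with a sum of 1111, 1211 and 1173 CPM at rest and 2968, 2892 and 3495 CPM at 72 h. Lgals1 (chromosome 15, 78926725 to 78930465), the gene of galectin-1, was at 24.4, 20.6 and 20.7 against 333, 321 and 317 CPM (log2FC of 3.88 ± 0.16 with adjusted p = 1.88e-17). Lgals3 was at 0, 0.633 and 0.600 against 151, 126 and 82.8 CPM (log2FC of 8.08 ± 0.38 with adjusted p = 3.57e-16). S100a10 was at 140.3 ± 9.7 against 511 ± 18.2 CPM (log2FC of 1.86 ± 0.13 with adjusted p = 1.70e-12). Its partner Anxa2 was at 7.59 ± 1.4 against 139 ± 28.7 CPM (log2FC of 4.19 ± 0.33 with adjusted p = 6.41e-09). All 4 were higher without overlap, and Anxa6 was near. Of 14 BCL2 family genes 5 were higher and 1 lower, the latter Bcl2 itself. Bcl2l1, another survival gene of the family, was higher (22.3 ± 2.2 against 51.3 ± 8.6 CPM, log2FC of 1.20 ± 0.19 with adjusted p = 9.45e-06), as were the death-promoting genes Bmf (4.83 ± 1.3 against 22.5 ± 7.8 CPM, log2FC of 2.21 ± 0.39 with adjusted p = 4.19e-05) and Bak1 (log2FC of 1.06 ± 0.20 with adjusted p = 8.47e-05). Mcl1 was near (300.2, 295 and 264 against 278, 288 and 310.3 CPM, 95% interval -0.18 to 0.24). Of 20 autophagy and lysosome genes 4 were higher (2 without resting library 2 and with library totals alone or upper-quartile factors), 3 lower (0 or 1 when any 1 of the 6 libraries was left out, and 1 without the filter on low counts) and 6 near. Gabarapl1 (log2FC of 1.996 ± 0.36 with adjusted p = 7.14e-05) and Ulk1 (log2FC of 0.64 ± 0.18 with adjusted p = 0.00522), of the autophagosome and its starter kinase, and the cathepsin gene Ctsb (log2FC of 0.50 ± 0.17 with adjusted p = 0.0191) were higher, Ctss was lower (log2FC of -0.58 ± 0.18 with adjusted p = 0.0144), and Becn1 and Lamp1 were near. Ctss lost its call without resting library 1 (0.0563), resting library 3 (0.0706), 72 h 41BB+ library 1 (0.204) and 72 h 41BB+ library 2 (0.0637), the adjusted p in parentheses. Ctsb lost its call without resting library 2 (adjusted p = 0.0753). The call of Ctsb was also lost with library totals alone and with upper-quartile factors (adjusted p 0.0591 to 0.0677).

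Of 20 chromatin genes of Polycomb, DNA methylation and TET, 5 were higher, 5 lower (3 without any of the resting libraries, 72 h 41BB+ library 1, the filter on low counts or mitochondrial and ribosomal protein genes) and 6 near (median -0.10). Ezh2, the H3K27 methyltransferase of Polycomb, was at 46.1, 19.9 and 30.6 against 284, 218 and 236 CPM (log2FC of 2.93 ± 0.18 with adjusted p = 8.21e-13). The maintenance DNA methyltransferase gene Dnmt1 was at 174, 176 and 166 against 544, 429 and 549 CPM (log2FC of 1.56 ± 0.11 with adjusted p = 2.63e-12). The Polycomb subunit gene Suz12 was at 91.8 ± 10.52 against 173 ± 38.3 CPM (log2FC of 0.91 ± 0.13 with adjusted p = 3.08e-06). Of the TET genes, which oxidize methylated cytosine, Tet2 and Tet3 were near (122 ± 29.7 against 125 ± 26.9 CPM, 290.4 ± 9.4 against 260.4 ± 28.8 CPM), and Tet1, named after its value was seen, was lower (44.9, 30.7 and 34.8 against 0.583, 2.44 and 10.7 CPM, log2FC of -2.99 ± 0.61 with adjusted p = 0.000850). For Tet1 the log2FC was -4.54 without 72 h 41BB+ library 3. Among 23 housekeeping genes 7 were higher, 2 lower (1 when any library but 72 h 41BB+ library 2 was left out, with limma voom, without the filter on low counts, in a fit of the compared groups alone or without mitochondrial and ribosomal protein genes) and 10 near (median 0.33). Actb was near, while Tubb5 (606 ± 59.1 against 1020.5 ± 81.4 CPM, log2FC of 0.75 ± 0.091 with adjusted p = 1.62e-07), Gapdh (32.2 ± 3.5 against 78.9 ± 11.5 CPM, log2FC of 1.29 ± 0.17 with adjusted p = 5.98e-07), the membrane shaping gene Reep5 (log2FC of 1.67 ± 0.16 with adjusted p = 3.22e-09) and the ATPase gene Vcp (log2FC of 0.71 ± 0.12 with adjusted p = 3.53e-05) were higher. Gapdh and Tubb5 have copies in the genome that may take reads.

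Among the 10 largest decreases by the rule was that of Dtx1 (chromosome 5, 120680202 to 120711927), which encodes a regulator of Notch signaling. Dtx1 was at 225, 233 and 238 CPM at rest and had 0 counts in all 3 libraries at 72 h, at least 786-fold lower. Dtx1 was at 80.3 ± 15.8 CPM in 41BB+ cells at 0 h. Besides Fos and the interferon genes, the other large decreases were at few counts. The apolipoprotein L gene Apol8 had 155 counts at rest and 1 at 72 h, a ratio of 161 (exact 95% counting interval 28.5 to 6415). The lipolysis inhibitor gene G0s2 had 80 and 1 counts, a ratio of 83.3 (exact 95% counting interval 14.5 to 3330.4), and the pseudogene Klra13-ps 108 and 2 counts, a ratio of 56.2 (exact 95% counting interval 15.2 to 470.2). The clock gene Per2 was at 27.2, 27.2 and 7.5004 against 0.583, 0.913 and 0 CPM (log2FC of -5.29 ± 0.67 with adjusted p = 6.02e-07). Its resting library 3 was well below resting libraries 1 and 2. For Per2 the log2FC was -5.95 without 72 h 41BB+ library 2 and -4.68 without 72 h 41BB+ library 3.

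The 72 h 41BB+ cells were also set against 72 h 41BB- cells and against 41BB+ cells at 0 h. These comparisons share the 72 h 41BB+ libraries, so their values stand side by side only. Against 72 h 41BB- cells, which had the same culture, 857 genes were higher (6.76%) and 1551 lower (12.2%). The number lower was 1015 without 72 h 41BB- library 2. Against 41BB+ cells at 0 h, 2980 were higher (23.5%) and 2963 lower (23.4%). Ribosome biogenesis genes were lower than in 72 h 41BB- cells in 25 of 29 cases, glycolysis genes in 16 of 23, serine, folate and nucleotide genes in 20 of 22, heat shock genes in 17 of 22 and replication genes in 30 of 33. Naive genes were higher than in 72 h 41BB- cells in 14 of 19 cases and quiescence factors in 10 of 19. In the summed levels, ribosome biogenesis was at 3239 ± 9.0 CPM at rest, 5069.5 ± 118 CPM in 72 h 41BB- and 2840.3 ± 298 CPM in 72 h 41BB+ cells. Naive genes were at 7736 ± 189, 3546 ± 322 and 6345 ± 68.3 CPM, and glycolysis genes at 1661 ± 17.6, 7249 ± 1548 and 2819.6 ± 258 CPM. Genes of G2 and mitosis were at 238 ± 23.9, 8282 ± 88.4 and 6574 ± 892 CPM, and 7 of the 34 were lower and 1 higher than in 72 h 41BB- cells. In each of these 4 sums the 72 h 41BB+ mean was closer to the resting mean than the 72 h 41BB- mean was. The naive sum includes Tcf7, which stood above rest, while 13 of the 19 tested members were lower than at rest. The ribosome biogenesis sum includes the abundant Ncl, at 1823, 1649 and 1970 CPM in 72 h 41BB- cells. Of the 29 tested members of that list, 19 were lower than at rest. Their median log2FC was -0.80 against rest and -0.87 against 72 h 41BB- cells, so the sum does not give the order of single members. Other sums had the opposite order. Effector and memory transcription factors were at 1742 ± 175, 2352 ± 153 and 3089.7 ± 206 CPM, and coinhibitory receptors at 419.6 ± 33.0, 617 ± 15.1 and 756 ± 124 CPM. Costimulatory molecules were at 1497 ± 62.8, 1886 ± 62.0 and 2170.3 ± 49.4 CPM, and integrins and homing receptors at 2402 ± 104, 2109 ± 218 and 2906 ± 393 CPM. In these 4 the 72 h 41BB+ mean lay further from rest. The 8 sums were chosen after their values were seen.

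Single genes also took either order. Myc was at 98.8 ± 6.0, 59.6 ± 8.9 and 21.1 ± 4.2 CPM in resting, 72 h 41BB- and 72 h 41BB+ cells (72 h populations log2FC -1.50, adjusted p = 3.28e-08), and Ldha at 173 ± 6.4, 1337 ± 246 and 431 ± 64.2 CPM (log2FC -1.63, adjusted p = 9.16e-10). Il7r was at 405 ± 33.9, 157 ± 15.5 and 361 ± 81.6 CPM (log2FC 1.20, adjusted p = 0.000812), Tcf7 at 1240.2 ± 54.6, 1276 ± 196 and 1949 ± 199 CPM (log2FC 0.61, adjusted p = 0.000320) and Dock2 at 1449.8 ± 117, 849 ± 55.7 and 1632 ± 82.1 CPM (log2FC 0.94, adjusted p = 5.87e-07). For Ldha, Il7r and Dock2 the 72 h 41BB+ mean lay closer to rest, for Myc it lay further below rest than in 72 h 41BB- cells, and for Tcf7 it lay above rest while the 72 h 41BB- mean was close to rest. Ikzf2 (36.1 ± 11.9, 211 ± 24.6 and 568 ± 96.5 CPM, log2FC 1.43, adjusted p = 1.80e-05) and Slc43a1 (1.42 ± 0.92, 17.9 ± 4.4 and 62.9 ± 6.4 CPM, log2FC 1.81, adjusted p = 5.85e-05) were further from rest in 41BB+ than in 41BB- cells at 72 h. Against their own 0 h level, 41BB+ cells at 72 h had less Eomes (log2FC -5.35, adjusted p = 3.60e-10), Prf1 (log2FC -4.29, adjusted p = 1.40e-09) and Ncl (log2FC -2.15, adjusted p = 4.07e-17) and more Il7r (log2FC 2.96, adjusted p = 1.22e-08), Itgb3 (log2FC 3.90, adjusted p = 2.19e-13) and Kif11 (log2FC 5.60, adjusted p = 1.33e-16).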

How the data were processed

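The data are bulk RNA-seq of sorted mouse CD8+ T cells in 6 groups of 3 libraries (41BB- and 41BB+ at 0, 24 and 72 h). The authors deposited raw counts per gene for all 18 libraries. Per the labels' protocols, RNA was made into libraries with a stranded total RNA kit, and per the submitters' processing notes FastQC 0.11.9, Trimmomatic 0.38, HISAT2 2.2.1 and featureCounts were used on GRCm38. The sources used here give no strand or multi-mapping settings, so values of overlapping, antisense and near-identical genes are uncertain. Of 55487 gene IDs, 55227 were named from GENCODE M21.

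Counts of all 18 libraries were fitted with edgeR 4.0.16 (R 4.3.3) by the quasi-likelihood test, with TMM factors, the group as the design and genes kept by filterByExpr (minimum count 10, minimum total 15), which left 13150 genes, 12686 of them autosomal. The biological coefficient of variation was 0.18. Titles carry experiment numbers 1 to 3 in every group, without saying what an experiment shares. Same-numbered libraries of the compared groups did not deviate together (correlations of deviations -0.043, 0.056 and -0.043). The share of Y-linked counts was lowest in number 1 and highest in number 3 in the 4 groups at 0 and 24 h (0.0208% and 0.0448% in resting cells) and lowest in number 3 in both 72 h groups (0.0102% in 41BB+ cells). The fit has no block, and blocked values stand beside results whose call they change. Distances used log2 CPM with a prior count of 2. The script was tested on simulated data. Totals ran from 3085241 to 4239795 counts over the 18 libraries. Some listed genes, such as Il2rg and Rpl13, had 0 counts in all 18 libraries, which is not read as absence.

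The members and gene lists were chosen with earlier results of these data known. Named genes are the check genes Tnfrsf9, Cd8a, Cd8b1, Cd3e, Cd4 and Foxp3, the 10 largest changes each way among called autosomal genes with at least 5 CPM in the higher group and no overlap, up to 4 members per list with the smallest adjusted p, up to 2 near members per list and 10 near genes overall with the highest level, and all polyamine and hypusination genes. Predicted genes (Gm numbers, Rik and clone names) and antigen receptor segments were left out of the largest changes and of the 10 near genes. Mitochondrial and ribosomal protein genes were also left out of the 10 near genes. Genes said to be named after their values were seen, and genes listed by name only, fall outside this rule. Some genes are not reported here.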

Additional observations from a re-analysis of the deposited data

How the results depend on the processing

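Of the 4706 calls, 0 turned direction among those fitted (4437 with the compared groups alone, 4647 with genes removed, and all 4706 otherwise) under DESeq2 (4858 calls), limma voom with quality weights (4414), RLE factors (4698), library totals alone (4795), upper-quartile factors (4828), no filter on low counts (4426), a fit of the compared groups alone (4038), removal of mitochondrial and ribosomal protein genes and Gm23935 (4624), or a covariate of Y-linked transcripts (4865), the last chosen after seeing the data. With the replicate number as a block 4658 genes were called. The titles give libraries of all groups an experiment number of 1 to 3, and the sources used here do not say what an experiment shares. Libraries of the same number did not deviate together in the groups compared, so the pairing is not in the main values. Among the named genes the block ended the call of Ifi203 (adjusted p = 0.0549) and no other. A test against 1.5-fold (glmTreat) called 2130 genes, 1299 higher and 831 lower. Near genes numbered 5433 with the interval within 2-fold and 260 with it within 0.32 on the log2 scale. The median distance to resting libraries was 1.564 with a prior count of 0.5 and 1.242 over genes of at least 5 CPM.

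With 1 library left out, 3988 to 4526 genes were called, 2381 to 2729 higher and 1574 to 1797 lower, 2296 to 2551 by at least 2-fold, and 1794 to 1932 were near. Against 72 h 41BB- cells 1015 to 1267 genes were lower, and 1015 without 41BB- library 2. Of 291 genes chosen by the rule for named genes or added later 216 were called, 154 of these under all 17 alternatives, and 0 reversed. At the depth of these libraries, genes below 5 CPM could not be placed near the resting level.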
